A study of Mus musculus with 18 samples.

Results

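Subcutaneous white adipose tissue (sWAT) of Csn8AKO and Ctrl mice was compared by RNA sequencing. The samples were chosen by their tissue label, and 8 of the 18 libraries of the series, 4 from Ctrl and 4 from Csn8AKO mice, came from this depot. Each library was made from 1 male mouse that was 12 weeks old, was fed chow and was fasted for 4 h before tissue was taken. The Ctrl mice carried floxed Csn8 alleles without Cre, whereas the Csn8AKO littermates carried the same alleles together with Cre under the adiponectin promoter, which is active in mature adipocytes. No group carried the Cre transgene without floxed alleles, so that the loss of CSN8 and the presence of the transgene cannot be told apart. The libraries were made from whole tissue, which also holds macrophages, fibroblasts, vessels and nerves.

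The COP9 signalosome is a protein complex that removes the small modifier NEDD8 from cullins, the scaffolds of a large family of ubiquitin ligases, and CSN8 is its smallest subunit. White adipocytes take up glucose and fatty acids, store them as triglyceride in a single large droplet, release fatty acids in the fasted state and secrete hormones such as adiponectin and leptin. In mice the subcutaneous depot also holds adipocytes that can turn on thermogenic genes. Macrophages that take up lipid from dying or shrinking adipocytes carry a known program, which includes Trem2, Gpnmb and lysosomal genes.

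Between 15835721 and 23109603 reads were counted per library, and all values below are CPM, the reads of a gene scaled to the size of its library, after TMM scaling, which corrects for the total and for a few genes that take up many reads. The share of reads in ribosomal RNA genes was 1.73% to 18.87% for Ctrl and 3.82% to 46.85% for Csn8AKO libraries, with Csn8AKO 3 and Csn8AKO 4 at the top. Single libraries held tissue other than fat. The summed level of T and natural killer cell markers was 896, 48.8, 42.1 and 76.7 CPM in Ctrl and 126, 1137, 58.2 and 53.2 CPM in Csn8AKO. Ctrl 1 and Csn8AKO 2 were also the highest for lymph node stroma, with 247.5 and 455.7 CPM. Skeletal muscle markers summed to 562, 1605, 6633 and 979.7 CPM in Ctrl and 332, 258, 990.3 and 4062 CPM in Csn8AKO, so that Ctrl 3 and Csn8AKO 4 stood above the others. Ctrl 4 held skin or hair follicle signal, with 987 reads of Krt71, 627 of Krt25, 465 of the desmosome gene Dsp, 253 of Krt27 and 68 of Krt5, where the other libraries had 8 or fewer of each. The mammary-type keratins Krt8 and Krt18 had 13 reads or fewer in every library. The adipocyte genes Adipoq, Plin1 and Fabp4 were high in all 8 libraries, and Ucp1, which marks thermogenic fat, had 0 to 14 reads in 7 libraries and 136 reads in Ctrl 2.

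**Figure D1:**
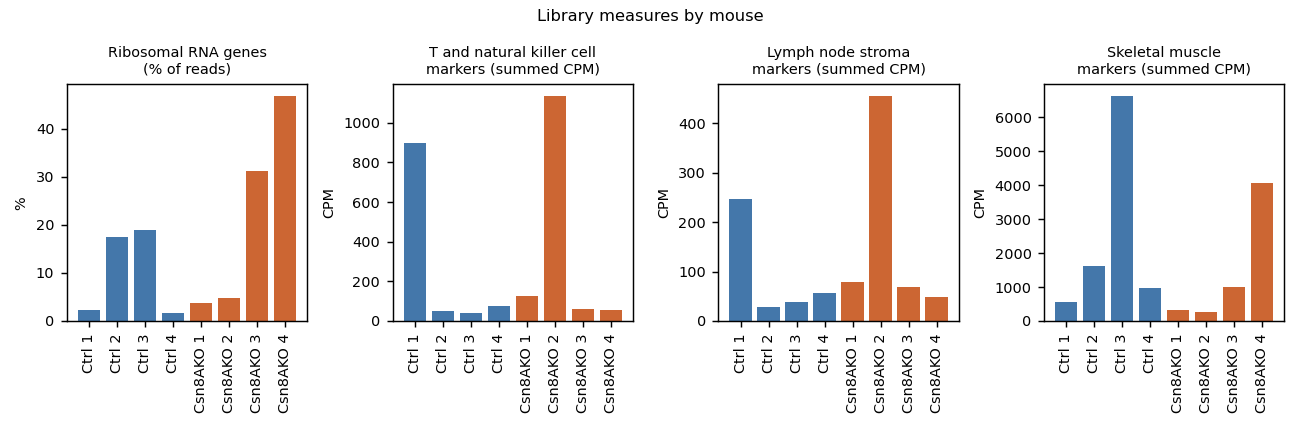
Ribosomal RNA share (% of reads) and summed levels of marker genes (CPM) in each of the 8 sWAT libraries, with Ctrl in blue and Csn8AKO in orange. Ctrl 1 and Csn8AKO 2 hold the lymphocyte and lymph node signal, and Ctrl 3 and Csn8AKO 4 hold the most muscle signal.

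The deletion covers exons 4 to 6 of Csn8, named Cops8 in the files (ENSMUSG00000034432, chromosome 1, 90602981 to 90613341 of GRCm38). Its count per gene was 33.8, 36.1, 34.7 and 34.9 CPM in Ctrl and 32.9, 29.1, 30.6 and 35.9 CPM in Csn8AKO (log2 fold change -0.12, SE 0.11, adjusted p = 0.623). Reads of a transcript that lacks these exons, and of cells without Cre, are still counted, so that this value does not check the deletion. None of the 10 subunit genes was called by edgeR, DESeq2 or limma voom or had an unadjusted p under 0.05, and their median log2 fold change was -0.05. Among 23 genes of cullins and the neddylation pathway 0 were called by these tools and 2 had an unadjusted p under 0.05, and the smallest p was that of the NEDD8 conjugating enzyme Ube2f (log2 fold change 0.29, adjusted p = 0.170).

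Of 18843 genes tested, 434 were higher (2.30%) and 567 lower (3.01%) in Csn8AKO sWAT at an adjusted p under 0.05, or 5.31% in either direction. Scaled by library size alone, without the TMM factors, 106 were higher and 328 lower. The values of the 4 Csn8AKO and 4 Ctrl mice did not overlap for 14.0% of all genes tested (5.78% higher and 8.24% lower) and for 426 of the higher and 562 of the lower genes. The median log2 fold change over all genes was 0.03. Genes were gathered into 67 lists by pathway and cell type, whose 1750 tested genes held 116 of the higher and 105 of the lower genes. The size of the calls moved with single libraries, since leaving out 1 library at a time gave 147 (without Csn8AKO 3) to 804 (without Csn8AKO 2) higher and 179 (without Csn8AKO 3) to 673 (without Csn8AKO 2) lower genes. Where a range of called members is given for a list, it comes from leaving out 1 library at a time, and the counts after it come from leaving out the muscle pair (Ctrl 3 and Csn8AKO 4) or the lymph node pair (Ctrl 1 and Csn8AKO 2) and from scaling by library size alone. A call is named stable here where the adjusted p stayed under 0.05 with each of the 8 libraries left out in turn, which held for 86 of the 164 called genes that the rule for naming takes. For other genes the largest adjusted p among these 8 fits is given after the words "up to", with the library left out. Called members given by their log2 fold change alone lie outside the rule for naming and were chosen after their values were seen.

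**Figure D2:**
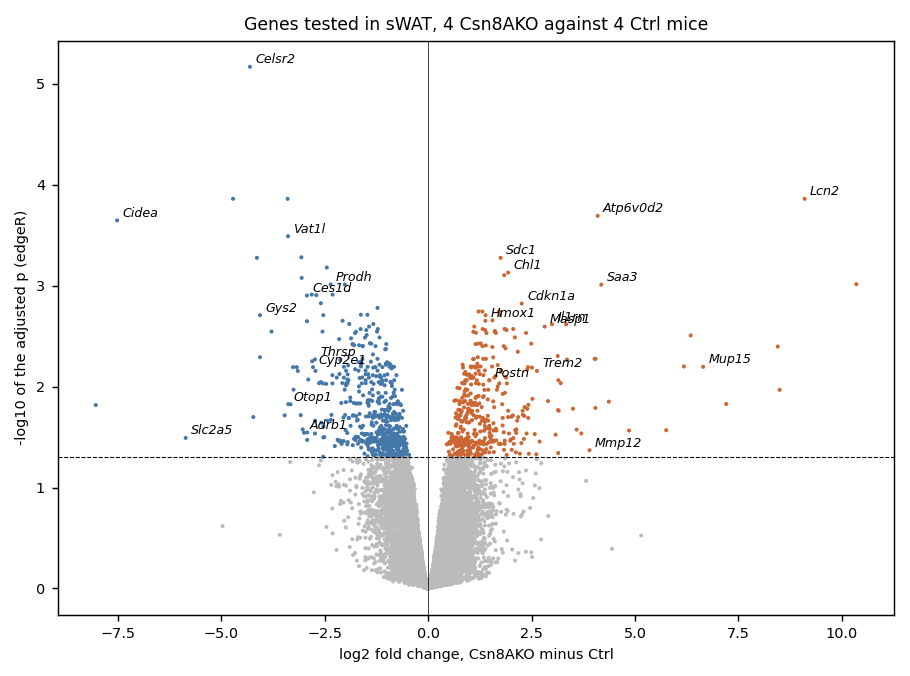
Log2 fold change (Csn8AKO minus Ctrl) against -log10 of the adjusted p for the 18843 genes tested in sWAT, with 434 higher genes in orange, 567 lower genes in blue, other genes in grey and the threshold of 0.05 as a dashed line. Celsr2 has the smallest adjusted p and Lcn2 lies far to the right.

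Genes outside the pathway lists gave some of the steepest falls. The carboxylesterase Ces1d, which hydrolyses triglyceride in adipocytes, was at 563, 718, 758 and 881 CPM in Ctrl and 136, 61.7, 65.5 and 120.1 CPM in Csn8AKO (log2 fold change -2.93, SE 0.30, adjusted p = 0.00125). Prodh, which starts the breakdown of proline in mitochondria, was at 58.2, 81.8, 76.5 and 101.2 CPM in Ctrl and 10.7, 14.6, 16.6 and 20.3 CPM in Csn8AKO (log2 fold change -2.36, SE 0.23, adjusted p = 9.73e-04). Every Csn8AKO mouse lay well below every Ctrl mouse for both genes. Chdh, which oxidizes choline on the way to betaine and shares exon positions with a gene on the other strand, was at 124, 119, 190.3 and 162 CPM in Ctrl and 41.4, 28.9, 34.7 and 42.7 CPM in Csn8AKO (log2 fold change -2.01, SE 0.19, adjusted p = 9.73e-04). Vat1l had 13.5, 16.6, 14.4 and 21.6 CPM in Ctrl and 1.02, 1.76, 2.06 and 1.49 CPM in Csn8AKO (log2 fold change -3.39, SE 0.27, adjusted p = 3.24e-04). Fn3k, which repairs glycated proteins, went from between 3.52 and 4.61 CPM in Ctrl to 0.746 CPM or less in Csn8AKO (log2 fold change -3.17, SE 0.48, adjusted p = 0.00642). Wscd2 (-2.45 ± 0.22 SE on the log2 scale), the noncoding host gene Snhg11 (-2.31 ± 0.23 SE) and the adhesion molecule Ncam2 (-3.26 ± 0.49 SE) also fell, as did Pclo (-3.15 ± 0.48 SE), which encodes a scaffold of nerve terminals. All of these calls were stable. The motor protein Myo5c fell by 3.25 on the log2 scale, with an adjusted p of 0.0514 without Csn8AKO 3. Since RNA was taken from whole tissue, fewer cells of a type and less RNA per cell cannot be told apart for this or any following gene.

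**Figure D3:**
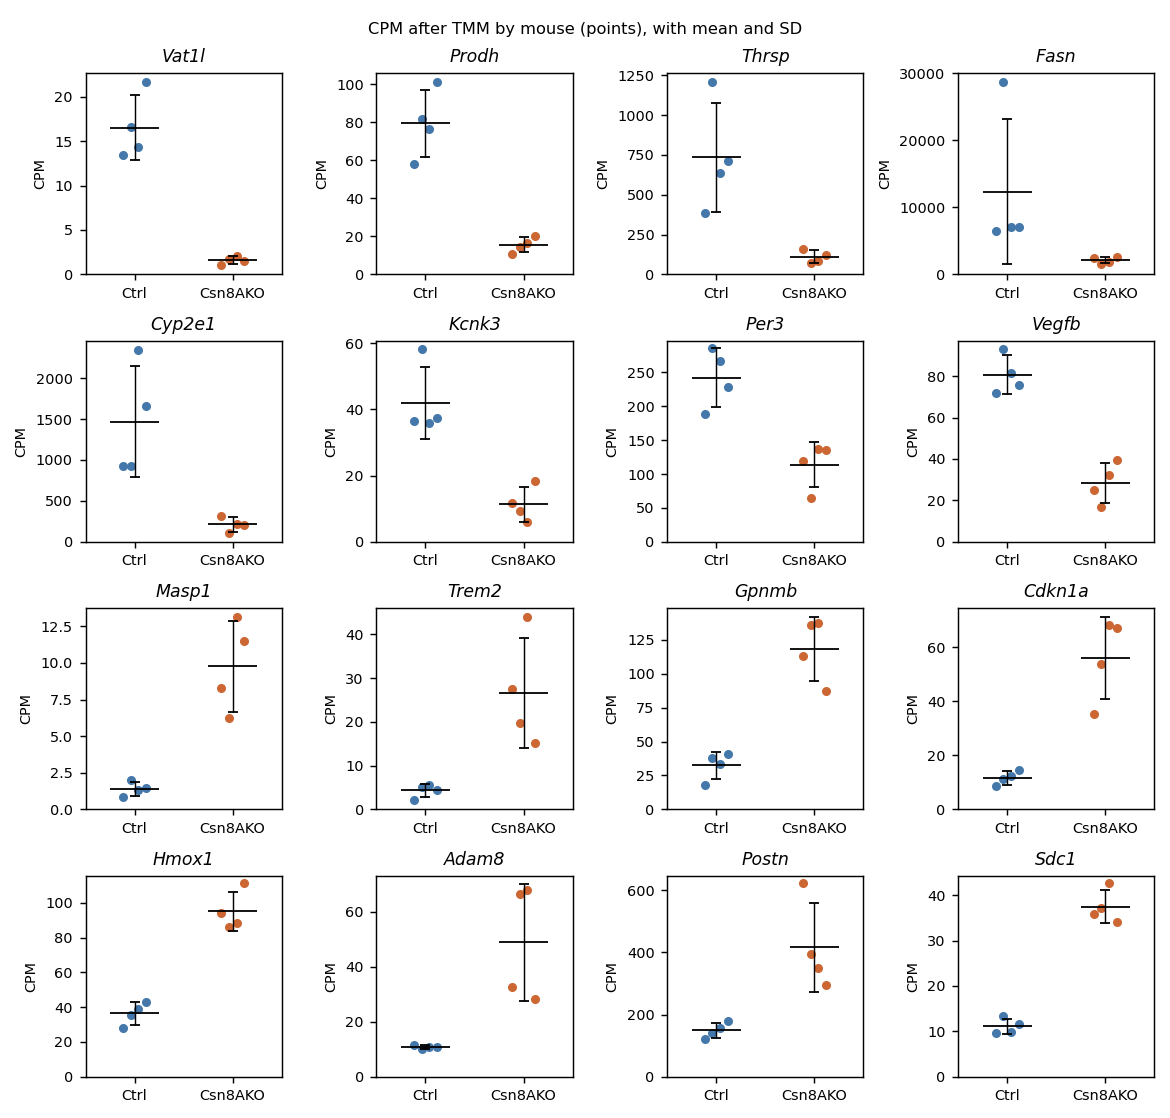
CPM after TMM of 16 genes in each of the 4 Ctrl (blue) and 4 Csn8AKO (orange) mice, with the mean as a line and the SD as bars, on axes that start at 0. The upper 8 genes are lower and the lower 8 genes higher in Csn8AKO sWAT, and no gene shown has overlapping groups.

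The factors that hold the adipocyte state fell unevenly. Of 27 adipogenic transcription factors 6 were lower and 0 higher, and their median log2 fold change was -0.31. Pparg, the master factor of adipocytes, was at 109.6, 186, 128 and 130.4 CPM in Ctrl and 124, 53.1, 137 and 151 CPM in Csn8AKO, so that the groups overlapped (log2 fold change -0.25, SE 0.30, adjusted p = 0.696). Cebpa, its partner, was at 335, 554, 319 and 408 CPM in Ctrl and 184, 109, 206 and 309 CPM in Csn8AKO and did not pass the test (log2 fold change -0.9996, SE 0.30, adjusted p = 0.0916), although its groups did not overlap. Klf15, a factor induced by glucocorticoids that drives amino acid breakdown, was at 78.4, 107, 118 and 120.4 CPM in Ctrl and 38.5, 33.7, 47.4 and 57.9 CPM in Csn8AKO with a stable call (log2 fold change -1.26, SE 0.20, adjusted p = 0.00788). Stat5a, which carries growth hormone and prolactin signals, fell, at 72.6 to 104 CPM in Ctrl and 36.9 to 51.9 CPM in Csn8AKO (log2 fold change -0.84, SE 0.16, adjusted p = 0.0186, up to 0.0506 without Csn8AKO 3). Further called members were Ebf3 (-0.91, up to 0.0933 without Ctrl 2), Srebf1 (-1.39, up to 0.0985 without Csn8AKO 3) and the carbohydrate response factor Mlxipl (-1.65, up to 0.104 without Ctrl 2), all lower. The number called was 1 (without any 1 of Csn8AKO 1 and Csn8AKO 3) to 10 (without Csn8AKO 4), 4 without the muscle pair, 9 without the lymph node pair and 6 with library size alone.

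Several genes of the lipid droplet were lower, whereas the lipase of lysosomes was higher. Of 25 genes of the droplet coat and lipolysis 7 fell and 2 rose (median -0.63). Cidec, which makes the single large droplet, was at 1304, 1909, 1769 and 1960 CPM in Ctrl and 940.4, 587, 711 and 1100 CPM in Csn8AKO (log2 fold change -1.06, SE 0.25, adjusted p = 0.0366). Lipe, the hormone-sensitive lipase, was at 937, 1476, 1223 and 1136 CPM in Ctrl and 464, 305, 525 and 811 CPM in Csn8AKO (log2 fold change -1.18, SE 0.29, adjusted p = 0.0444). The adjusted p of these genes reached 0.132 without Csn8AKO 3 and 0.133 without Csn8AKO 3. Csn8AKO 4 was the closest to Ctrl for both. Plin1, which coats the droplet, was at 1390, 1930, 1484 and 1468 CPM in Ctrl and 735, 406, 874 and 1247 CPM in Csn8AKO and did not pass the test (adjusted p = 0.114). Lipa, the lysosomal acid lipase, was at 55.5, 58.4, 57.8 and 59.9 CPM in Ctrl and 147, 99.1, 192 and 104 CPM in Csn8AKO with a stable call (log2 fold change 1.22, SE 0.20, adjusted p = 0.00941). Hilpda, an inhibitor of lipolysis that hypoxia and fatty acids induce, rose, at 2.8 to 4.34 CPM in Ctrl and 7.02 to 8.57 CPM in Csn8AKO (log2 fold change 1.15, SE 0.20, adjusted p = 0.0130, up to 0.0516 without Ctrl 4). Lower droplet genes numbered 1 (without any 1 of Csn8AKO 1, Csn8AKO 3, Ctrl 2, Ctrl 3 and Ctrl 4) to 9 (without Csn8AKO 4), 3 without the muscle pair, 10 without the lymph node pair and 9 with library size alone.

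De novo lipogenesis had the lowest median of the lists with 10 or more genes tested. Of 22 genes 6 were lower and 0 higher, and the median log2 fold change was -0.94. The groups did not overlap for 11 genes, all lower, beside 8.24% of all genes tested that were lower without overlap. Fasn, the fatty acid synthase, was at 6510, 28666, 7116 and 7117 CPM in Ctrl and 2482, 1544, 1900 and 2645 CPM in Csn8AKO (log2 fold change -2.53, SE 0.52, adjusted p = 0.0248). All Csn8AKO values lay below all Ctrl values, and Ctrl 2 stood far above the other Ctrl mice. Acly, which makes the acetyl-CoA for this pathway, was at 382, 2344, 346 and 399.9 CPM in Ctrl and 353, 249.9, 361 and 302 CPM in Csn8AKO, and apart from Ctrl 2 the groups overlapped (log2 fold change -1.45, SE 0.65, adjusted p = 0.257). Thrsp, a lipogenic regulator, was at 382, 1206, 638 and 711 CPM in Ctrl and 161, 73.4, 82.8 and 124 CPM in Csn8AKO (log2 fold change -2.74, SE 0.38, adjusted p = 0.00539). Aacs, which activates acetoacetate for lipid synthesis, was at 321, 443, 338 and 324 CPM in Ctrl and 110.3, 84.6, 119 and 145 CPM in Csn8AKO (log2 fold change -1.63, SE 0.20, adjusted p = 0.00269). Acacb was at 606, 838, 777 and 792 CPM in Ctrl and 212, 177, 302 and 367 CPM in Csn8AKO (log2 fold change -1.51, SE 0.25, adjusted p = 0.00865). The calls of Thrsp, Aacs and Acacb were stable, and the list held 6 called genes without Ctrl 2. Its called genes numbered 3 (without any 1 of Csn8AKO 1 and Csn8AKO 3) to 6, 3 without the muscle pair, 6 without the lymph node pair and 7 with library size alone. Fasn lost its call without Csn8AKO 1, 2 or 3 (adjusted p up to 0.0932 without Csn8AKO 3), and without Ctrl 2 its log2 fold change was -1.70. The remaining called genes were Acaca (-1.63, up to 0.0998 without Csn8AKO 3) and Mcat (-0.67, up to 0.103 without Ctrl 2).

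Uptake of fatty acids and their esterification were called at few genes. Of 17 uptake genes 0 were called by edgeR (median -0.12), with 5 of them at an unadjusted p under 0.05, and DESeq2 and limma voom called 1 each. Lpl, the lipase that frees fatty acids from lipoproteins, was at 3840, 7766, 5775 and 5038 CPM in Ctrl and 5272, 2628, 5445 and 6079 CPM in Csn8AKO, and its groups overlapped (adjusted p = 0.782). The endothelial protein Gpihbp1, which carries Lpl to the vessel lumen, was at 35.4, 56.2, 52.3 and 47.4 CPM in Ctrl and 19.8, 19.8, 31.7 and 39.5 CPM in Csn8AKO (adjusted p = 0.0969). Of 18 genes of triglyceride synthesis 3 fell and 2 rose (median -0.28). Pck1, which supplies glycerol phosphate in fat, was at 2269, 2460, 3255 and 4063 CPM in Ctrl and 1368, 672, 1192 and 1426 CPM in Csn8AKO (log2 fold change -1.37, SE 0.30, adjusted p = 0.0294, up to 0.0978 without Csn8AKO 3). Gpat4 was lower (log2 fold change -0.78, SE 0.16, adjusted p = 0.0208, up to 0.0790 without Csn8AKO 3). Gpam was at 305 to 336 CPM in Ctrl and 202 to 444 CPM in Csn8AKO (adjusted p = 0.906) and Dgat2 at 1014 to 2108 CPM in Ctrl and 324 to 847 CPM in Csn8AKO (adjusted p = 0.0769). Agpat4 was at 10.7, 11.0, 10.7 and 12.7 CPM in Ctrl and 24.4, 22.4, 34.2 and 23.04 CPM in Csn8AKO, a stable rise (log2 fold change 1.20, SE 0.17, adjusted p = 0.00512). Gpd1 (-1.32, up to 0.111 without Csn8AKO 3) and the monoacylglycerol acyltransferase Mogat2 (2.61, up to 0.131 without Csn8AKO 3) were the remaining called genes. Lower calls of triglyceride synthesis numbered 0 (without any 1 of Csn8AKO 1, Csn8AKO 3, Ctrl 2, Ctrl 3 and Ctrl 4) to 4 (without Csn8AKO 4), 0 without the muscle pair, 6 without the lymph node pair and 3 with library size alone, and the higher ones went to 1 without Csn8AKO 1.

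Glucose handling was lower at several steps. Of 47 genes of glucose uptake, glycolysis and glycogen 9 were lower and 1 higher, and their median log2 fold change was -0.64, with 39 genes below 0. Lower genes of glycogen synthesis were the synthase Gys1 (-1.22, up to 0.0925 without Ctrl 2), the branching enzyme Gbe1 (-1.10, up to 0.133 without Csn8AKO 3), the phosphoglucomutase Pgm1 (-1.01, up to 0.124 without Ctrl 2) and the targeting subunit Ppp1r3b (-2.51, up to 0.107 without Csn8AKO 3). The liver type synthase Gys2 was at 66.2, 91.2, 48.9 and 105 CPM in Ctrl and 5.49, 1.8, 5.02 and 6.41 CPM in Csn8AKO (log2 fold change -4.06, SE 0.41, adjusted p = 0.00196). Slc2a4, which encodes the insulin-responsive transporter GLUT4, was at 156 to 258 CPM in Ctrl and 21.6 to 58.3 CPM in Csn8AKO (log2 fold change -2.12, SE 0.30, adjusted p = 0.00545). The fructose transporter Slc2a5 was at 3.56, 25.8, 2.95 and 3.21 CPM in Ctrl and 0.0923, 0, 0.412 and 0.149 CPM in Csn8AKO, with Ctrl 2 far above the other Ctrl mice (log2 fold change -5.86, SE 1.18, adjusted p = 0.0322, up to 0.0928 without Csn8AKO 1). Hk3, a hexokinase of myeloid cells, rose, at 9.24 to 11.7 CPM in Ctrl and 23.9 to 35.9 CPM in Csn8AKO (log2 fold change 1.38, SE 0.17, adjusted p = 0.00276). Calls of Gys2, Slc2a4 and Hk3 were stable. Of 34 genes from the insulin receptor to AKT 0 were called, with 10 at an unadjusted p under 0.05, 5 called by DESeq2 and 5 by limma voom. Akt2 was at 305, 440.3, 368 and 424 CPM in Ctrl and 221, 134, 223 and 288 CPM in Csn8AKO (adjusted p = 0.0707). Lower glucose genes numbered 3 (without any 1 of Csn8AKO 1, Csn8AKO 3 and Ctrl 4) to 12 (without Ctrl 1), 3 without the muscle pair, 13 without the lymph node pair and 12 with library size alone.

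Several genes for the breakdown of branched-chain amino acids, a main carbon source of mature adipocytes, were lower. Of 29 genes 10 fell and 1 rose, 27 lay below 0 and the median log2 fold change was -0.64. Bcat2, the first step, was at 127, 138, 178 and 196 CPM in Ctrl and 98.8, 66.3, 89.2 and 108 CPM in Csn8AKO (log2 fold change -0.82, SE 0.19, adjusted p = 0.0369, up to 0.117 without Csn8AKO 3). The subunits of the second, rate-limiting step did not pass the test, with Bckdha at 32.8 to 44.8 CPM in Ctrl and 11.6 to 27.5 CPM in Csn8AKO (adjusted p = 0.0952) and Bckdhb at 40.4 to 58.1 CPM in Ctrl and 23.6 to 55.1 CPM in Csn8AKO (adjusted p = 0.624). Further down, Mccc1 (log2 fold change -1.33, SE 0.19, adjusted p = 0.00481) and Ivd (log2 fold change -1.28, SE 0.19, adjusted p = 0.00642), enzymes of leucine, had stable calls. Mut, which feeds valine and isoleucine carbon into the TCA cycle, was at 90.7, 117, 109 and 104 CPM in Ctrl and 67.6, 34.5, 55.8 and 49.4 CPM in Csn8AKO (log2 fold change -1.02, SE 0.19, adjusted p = 0.0170, up to 0.0571 without Ctrl 3). The member that rose was Oxct1 (0.91, up to 0.149 without Csn8AKO 3), an enzyme of ketone use. Lower calls of this pathway numbered 2 (without any 1 of Csn8AKO 3, Ctrl 3 and Ctrl 4) to 15 (without Csn8AKO 2), 2 without the muscle pair, 16 without the lymph node pair and 6 with library size alone.

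Genes of mitochondrial oxidation fell in part. Of 31 genes of fatty acid oxidation 6 fell and 0 rose (median -0.57), and of 20 genes of the TCA cycle 4 fell and 0 rose (median -0.55). Hadhb, part of the trifunctional protein of long-chain oxidation, was at 119.5, 189.7, 131 and 143 CPM in Ctrl and 97.0, 62.8, 75.4 and 86.6 CPM in Csn8AKO (log2 fold change -0.86, SE 0.19, adjusted p = 0.0292). The carnitine carrier Slc25a20 fell, at 32.0 to 45.1 CPM in Ctrl and 21.9 to 28.9 CPM in Csn8AKO (log2 fold change -0.70, SE 0.15, adjusted p = 0.0314). The thiolase Acaa2 was at 89.98 to 140.0 CPM in Ctrl and 33.8 to 66.1 CPM in Csn8AKO (log2 fold change -0.997, SE 0.22, adjusted p = 0.0318). In the TCA cycle Sdha was at 362, 535, 379 and 450.5 CPM in Ctrl and 262, 180.2, 256 and 268 CPM in Csn8AKO (log2 fold change -0.84, SE 0.19, adjusted p = 0.0347). Idh2 (-0.92 ± 0.21 SE) and Suclg2 (-0.73 ± 0.15 SE) fell as well. None of these 6 calls was stable, with adjusted p values of up to 0.0986 without Csn8AKO 3, 0.102 without Csn8AKO 3, 0.0940 without Ctrl 2, 0.102 without Ctrl 2, 0.103 without Ctrl 2 and 0.0777 without Ctrl 4, and both lists had 0 calls without Csn8AKO 3. Both had 0 also without the muscle pair, 12 and 7 without the lymph node pair and 2 and 0 with library size alone. Of 71 nuclear genes of the respiratory chain 66 lay below 0 (median -0.27), but only Atp5g1 was called and it was higher (log2 fold change 0.53, SE 0.13, adjusted p = 0.0473, up to 0.159 without Ctrl 3). All 13 protein genes of the mitochondrial genome lay below 0 (median -0.48), and 0 were called by edgeR, with 6 at an unadjusted p under 0.05, 4 called by DESeq2 and 3 by limma voom. Mt-Cytb was at 2769, 4605, 3115 and 3164 CPM in Ctrl and 2344, 1358, 1722 and 1899 CPM in Csn8AKO (adjusted p = 0.0734). As these genes are copied together from 1 genome, their common direction is not that of 13 independent genes.

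Several thermogenic and beige genes were lower, and so was the beta receptor Adrb1. Of 21 tested genes 6 fell and 1 rose (median -0.80), 15 lay below and 6 above 0, and Ucp1 itself did not reach the count minimum. Not all markers of this fat were lower. Before scaling, Elovl3 had 1, 6, 0 and 23 reads in Ctrl and 46, 18, 32 and 33 reads in Csn8AKO. Dio2 had 0, 16, 7 and 31 reads in Ctrl and 39, 22, 9 and 20 reads in Csn8AKO. Prdm16, the coregulator of the beige state, was at 38.7, 46.6, 33.6 and 37.5 CPM in Ctrl and 12.3, 10.8, 14.6 and 22.7 CPM in Csn8AKO (log2 fold change -1.37, SE 0.23, adjusted p = 0.00902), a stable call. Kcnk3, a potassium channel of thermogenic adipocytes, was at 36.5, 58.2, 35.8 and 37.4 CPM in Ctrl and 11.8, 9.43, 5.91 and 18.4 CPM in Csn8AKO with a stable call (log2 fold change -1.88, SE 0.32, adjusted p = 0.0128). For both genes the highest Csn8AKO value was that of Csn8AKO 4. Otop1, a proton channel, was at 7.58, 19.3, 4.78 and 8.49 CPM in Ctrl and 1.11, 0.632, 0.275 and 1.86 CPM in Csn8AKO (log2 fold change -3.38, SE 0.60, adjusted p = 0.0149, up to 0.0519 without Csn8AKO 1). The member that rose was S100b, at 2.07 to 2.54 CPM in Ctrl and 3.47 to 5.96 CPM in Csn8AKO (log2 fold change 1.11, SE 0.24, adjusted p = 0.0294, up to 0.0980 without Csn8AKO 3). Of 40 genes of adrenergic and cAMP signaling 4 fell and 0 rose, while the list as a whole lay near 0 (median -0.06). Adrb1, a receptor for noradrenaline, was at 17.1, 8.84, 16.0 and 29.7 CPM in Ctrl and 1.15, 0.812, 2.27 and 4.92 CPM in Csn8AKO (log2 fold change -3.00, SE 0.60, adjusted p = 0.0287, up to 0.100 without Csn8AKO 3). Adrb3, the main beta receptor of mouse fat, was at 311, 295, 296 and 234 CPM in Ctrl and 99.9, 58.1, 173 and 165 CPM in Csn8AKO, without overlap of the groups, and missed the threshold (adjusted p = 0.0526). The adenosine receptor Adora1 (-1.24, up to 0.115 without Csn8AKO 3) was also called lower. Adrenergic and cAMP genes called lower numbered 1 (without any 1 of Csn8AKO 3, Ctrl 3 and Ctrl 4) to 8 (without Csn8AKO 4), 4 without the muscle pair, 4 without the lymph node pair and 5 with library size alone. Of 11 tested genes of the creatine and calcium cycles that also produce heat 0 were called, with 3 at an unadjusted p under 0.05, 1 called by DESeq2 and 1 by limma voom. Gatm, which makes the precursor of creatine, was at 4.38 to 7.03 CPM in Ctrl and 8.53 to 16.8 CPM in Csn8AKO (adjusted p = 0.0613).

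Hormones and growth factors that fat secretes split by gene. Of 18 tested genes 5 fell and 1 rose (median -0.47). Adipoq was at 1148, 1560, 1396 and 1525 CPM in Ctrl and 1102, 489.6, 933 and 992 CPM in Csn8AKO (adjusted p = 0.173). Lep was at 554, 804, 469 and 454 CPM in Ctrl and 393, 273, 384 and 495 CPM in Csn8AKO (adjusted p = 0.224), so that neither passed the test. Cfd, the protease adipsin, was at 7720, 7370, 9937 and 9611 CPM in Ctrl and 2804, 1534, 4029 and 4215 CPM in Csn8AKO (log2 fold change -1.46, SE 0.34, adjusted p = 0.0350, up to 0.107 without Ctrl 3). Nampt was at 109, 130.4, 156 and 152 CPM in Ctrl and 77.8, 42.3, 56.2 and 62.7 CPM in Csn8AKO (log2 fold change -1.20, SE 0.20, adjusted p = 0.00902), a stable call. For Cfd and Nampt every Csn8AKO value lay below every Ctrl value, and Csn8AKO 2 was the lowest. Sfrp5, a secreted inhibitor of WNT ligands, was at 40.7, 60.5, 30.8 and 21.8 CPM in Ctrl and 10.8, 5.87, 9.14 and 12.2 CPM in Csn8AKO (log2 fold change -2.02, SE 0.33, adjusted p = 0.0107, up to 0.0502 without Csn8AKO 3). Nrg4, a ligand of ErbB receptors that brown and beige fat releases, was at 129, 165, 160.3 and 152 CPM in Ctrl and 64.0, 27.7, 61.7 and 82.3 CPM in Csn8AKO (log2 fold change -1.37, SE 0.28, adjusted p = 0.0239, up to 0.0781 without Csn8AKO 3). Metrnl was the member that rose, at 18.0 to 22.4 CPM in Ctrl and 30.0 to 50.8 CPM in Csn8AKO, with a stable call (log2 fold change 1.04, SE 0.17, adjusted p = 0.00954). The vascular growth factors that adipocytes make were lower too. Vegfb was at 71.8, 93.3, 81.7 and 75.5 CPM in Ctrl and 24.9, 16.9, 32.0 and 39.3 CPM in Csn8AKO (log2 fold change -1.51, SE 0.23, adjusted p = 0.00693), with a stable call. Vegfa was at 259, 225, 401 and 318 CPM in Ctrl and 115, 103, 136 and 215 CPM in Csn8AKO (log2 fold change -1.08, SE 0.26, adjusted p = 0.0418, up to 0.132 without Csn8AKO 3). Among the Csn8AKO mice, Csn8AKO 2 was the lowest and Csn8AKO 4 the highest for both. Inhbb, a subunit of activins and inhibins, was at 37.9, 75.5, 26.6 and 29.0 CPM in Ctrl and 7.89, 11.7, 13.0 and 17.7 CPM in Csn8AKO (log2 fold change -1.75, SE 0.37, adjusted p = 0.0314, up to 0.0980 without Csn8AKO 3). Cntfr, the receptor for ciliary neurotrophic factor, fell, at 11.9 to 24.6 CPM in Ctrl and 4.42 to 7.84 CPM in Csn8AKO with a stable call (log2 fold change -1.59, SE 0.25, adjusted p = 0.00812). The number of lower genes among the fat-secreted proteins was 1 (without Csn8AKO 3) to 5, 1 without the muscle pair, 5 without the lymph node pair and 5 with library size alone.

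Some genes of the circadian clock fell. Of 17 clock genes 3 were lower and 0 higher (median -0.47). Per3, a repressor of the clock, was at 188, 286, 267 and 229 CPM in Ctrl and 119, 65.0, 137 and 135 CPM in Csn8AKO (log2 fold change -1.09, SE 0.24, adjusted p = 0.0316, up to 0.0953 without Ctrl 2). Hlf, a PAR bZIP factor that binds D-box sites, was at 44.7 to 72.4 CPM in Ctrl and 7.4 to 30.0 CPM in Csn8AKO (log2 fold change -1.70, SE 0.36, adjusted p = 0.0318, up to 0.0958 without Ctrl 2). Tef, of the same family, was at 240.2 to 334 CPM in Ctrl and 86.5 to 173 CPM in Csn8AKO (log2 fold change -0.97, SE 0.22, adjusted p = 0.0347, up to 0.105 without Ctrl 2). Dbp, the third factor of this family, was at 60.7, 62.6, 41.3 and 39.0 CPM in Ctrl and 28.7, 9.07, 34.2 and 37.7 CPM in Csn8AKO and did not pass the test (adjusted p = 0.243). Each of the 3 calls was lost without any 1 of Csn8AKO 1, Ctrl 2, Ctrl 3 and Ctrl 4, and also without the muscle pair. The promoters of Per3 and Tef are shown as those of members that fell together. Each window holds the 250 bases before the RefSeq start on GRCm38.p6, written along the gene's strand, with matches in capitals: in Per3 the D-box letters TTATGTAA, and in Tef the E-box letters CACGTG, which CLOCK and its relatives bind. The windows are chr4:151044666-151044915 on the minus strand for Per3 and chr15:81802423-81802672 on the plus strand for 1 of the 2 starts of Tef.
Per3: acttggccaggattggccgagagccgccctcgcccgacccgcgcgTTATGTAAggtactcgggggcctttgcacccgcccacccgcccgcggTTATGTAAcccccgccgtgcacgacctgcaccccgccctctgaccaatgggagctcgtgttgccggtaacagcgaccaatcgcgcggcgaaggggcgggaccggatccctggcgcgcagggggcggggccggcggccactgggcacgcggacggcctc
Tef: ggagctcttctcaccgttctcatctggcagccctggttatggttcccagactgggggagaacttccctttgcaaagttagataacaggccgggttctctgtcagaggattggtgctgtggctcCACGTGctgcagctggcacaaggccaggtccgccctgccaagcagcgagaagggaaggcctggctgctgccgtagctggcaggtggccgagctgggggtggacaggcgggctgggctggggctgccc
Per3 had 2 matches to the D-box, which begin 205 and 158 bases before the start, and Tef had 1 match to the E-box, which begins 127 bases before it. Read on both strands, the D-box letters were present in 0.819% and the E-box letters in 6.02% of the 32851 promoter windows of this length. Among the windows of genes called lower the shares were 1.73% (9 of 520) and 8.08% (42 of 520). Among those of genes called higher they were 1.23% (5 of 407) and 5.41% (22 of 407). The D-box shares thus rest on few windows, and differences between shares were not tested. Per3 was searched for the D-box alone and Tef for the E-box alone. A match only says that these letters are there.

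Receptors and enzymes for steroid and thyroid hormones were lower in part. Of 23 tested genes 5 fell and 1 rose (median -0.19). Thrb, a thyroid hormone receptor, was at 49.7, 40.5, 42.2 and 39.5 CPM in Ctrl and 20.8, 14.0, 17.9 and 26.3 CPM in Csn8AKO (log2 fold change -1.12, SE 0.19, adjusted p = 0.00933), a stable call. Hsd11b1, which makes active corticosterone inside the cell, was at 80.0, 171, 96.1 and 123 CPM in Ctrl and 54.8, 45.3, 52.9 and 62.1 CPM in Csn8AKO (log2 fold change -1.13, SE 0.22, adjusted p = 0.0201, up to 0.0737 without Csn8AKO 3). Further called members were Rxrg (-1.46, up to 0.102 without Ctrl 4) and the mineralocorticoid receptor Nr3c2 (-1.18, up to 0.111 without Ctrl 2), both lower, and Nr4a3 (1.16, up to 0.112 without Ctrl 4), which was higher. Lower receptor and enzyme genes numbered 1 (without Csn8AKO 1) to 5, 2 without the muscle pair, 5 without the lymph node pair and 5 with library size alone. Among 26 cytochrome P450 genes and their reductase 4 fell and 1 rose, while 15 lay above and 11 below 0 (median 0.12). DESeq2 called 5 lower and 3 higher, and limma voom 5 lower and 4 higher. Cyp2e1, an enzyme that oxidizes small molecules such as ethanol and acetone, was at 932, 926, 2346 and 1662 CPM in Ctrl and 319, 105, 219.9 and 209 CPM in Csn8AKO with a stable call (log2 fold change -2.78, SE 0.41, adjusted p = 0.00642). The reductase Por (-1.22, up to 0.0651 without Ctrl 4) fell and Cyp2b10 (3.20) rose.

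Redox genes moved in both directions. Of 46 genes of glutathione metabolism 7 fell and 3 rose (median -0.37). Gstk1, a glutathione transferase of mitochondria and peroxisomes, was at 25.4, 29.9, 27.0 and 31.7 CPM in Ctrl and 12.1, 4.42, 9.83 and 9.84 CPM in Csn8AKO (log2 fold change -1.65, SE 0.27, adjusted p = 0.00822). Mgst2 was at 8.93, 7.83, 6.61 and 7.66 CPM in Ctrl and 17.5, 15.3, 15.4 and 17.7 CPM in Csn8AKO (log2 fold change 1.09, SE 0.15, adjusted p = 0.00535), and both calls were stable. Hpgds, a prostaglandin synthase of hematopoietic cells, rose, at 6.68 to 7.42 CPM in Ctrl and 10.9 to 27.3 CPM in Csn8AKO (log2 fold change 1.44, SE 0.28, adjusted p = 0.0195, up to 0.0697 without Ctrl 3). Of 35 NRF2 targets and antioxidant enzymes 2 rose and 1 fell (median 0.06). Hmox1, which breaks down heme, was at 27.8, 35.8, 39.2 and 43.1 CPM in Ctrl and 94.2, 86.4, 88.7 and 111 CPM in Csn8AKO, a stable rise (log2 fold change 1.38, SE 0.16, adjusted p = 0.00223). Nqo1, a classical NRF2 target, was at 2.53 to 4.61 CPM in Ctrl and 1.53 to 3.97 CPM in Csn8AKO (adjusted p = 0.377). Sod1 was at 331, 520.3, 374 and 385 CPM in Ctrl and 216, 113, 230.2 and 208 CPM in Csn8AKO (log2 fold change -1.07, SE 0.24, adjusted p = 0.0333, up to 0.0993 without Ctrl 2). Heph, a ferroxidase for iron export, fell, at 97.2 to 124 CPM in Ctrl and 34.6 to 65.4 CPM in Csn8AKO (log2 fold change -1.14, SE 0.20, adjusted p = 0.0126, up to 0.0576 without Csn8AKO 3). The list of 21 iron genes also held the lower metalloreductase Steap4 (-0.79, up to 0.151 without Csn8AKO 3). The count of lower glutathione genes was 1 (without any 1 of Csn8AKO 3, Ctrl 2, Ctrl 3 and Ctrl 4) to 7, 1 without the muscle pair, 10 without the lymph node pair and 7 with library size alone, and that of higher ones 1 (without any 1 of Csn8AKO 1, Csn8AKO 3, Ctrl 2, Ctrl 3 and Ctrl 4) to 3, 1 without the muscle pair, 3 without the lymph node pair and 0 with library size alone.

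Few genes of the proteasome, of stress responses and of autophagy were called. Of 47 proteasome genes 1 was lower and 0 higher (median -0.06). The called gene was the regulator Nfe2l1, at 397, 563, 438 and 533 CPM in Ctrl and 274, 238, 279.9 and 353 CPM in Csn8AKO (log2 fold change -0.75, SE 0.18, adjusted p = 0.0424, up to 0.132 without Csn8AKO 3). Of 42 genes of the unfolded protein and integrated stress responses 31 lay above and 11 below 0 (median 0.16). Beside 2.30% higher and 3.01% lower over all genes, 0 of the 42 rose and 2 fell. These were Asns, which makes asparagine, at 49.6, 51.1, 62.3 and 63.1 CPM in Ctrl and 26.5, 16.2, 19.7 and 21.8 CPM in Csn8AKO (log2 fold change -1.43, SE 0.17, adjusted p = 0.00255), and Phgdh, which starts serine synthesis. Phgdh was at 171, 250.3, 198 and 223 CPM in Ctrl and 108, 70.7, 111 and 93.5 CPM in Csn8AKO (log2 fold change -1.14, SE 0.18, adjusted p = 0.00815). Both calls were stable, and both genes are known as targets of ATF4. In the higher direction 6 genes of the list had an unadjusted p under 0.05, and DESeq2 and limma voom called 2 each. Ddit3, which encodes the stress factor CHOP, was at 10.9, 12.0, 9.15 and 8.54 CPM in Ctrl and 10.4, 12.5, 7.97 and 9.84 CPM in Csn8AKO (adjusted p = 0.989). Among 36 chaperones 3 fell and 0 rose, namely the small heat shock proteins Cryab (-1.18 ± 0.25 SE, adjusted p up to 0.0912 without Csn8AKO 3) and Hspb6 (-1.35 ± 0.32 SE, up to 0.118 without Ctrl 2) and the mitochondrial Trap1 (-0.64 ± 0.15 SE, up to 0.103 without Ctrl 2). The chaperones called numbered 0 (without any 1 of Csn8AKO 3 and Ctrl 4) to 4 (without Ctrl 1), 0 without the muscle pair, 5 without the lymph node pair and 2 with library size alone. Of 50 autophagy genes only Mitf was called, with 37.7, 25.2, 33.4 and 31.8 CPM in Ctrl and 65.1, 45.03, 55.3 and 44.1 CPM in Csn8AKO (log2 fold change 0.71, SE 0.17, adjusted p = 0.0391, up to 0.125 without Csn8AKO 3). The autophagy receptor Sqstm1 was at 197 to 265 CPM in Ctrl and 150.2 to 264 CPM in Csn8AKO (adjusted p = 0.878).

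Some lysosomal genes were higher. Of 58 genes 10 rose and 0 fell, 50 lay above 0, and the median log2 fold change was 0.29. Slc11a1, a metal transporter of the phagosome, was at 20.6, 21.7, 25.3 and 25.4 CPM in Ctrl and 49.0, 44.6, 72.3 and 46.5 CPM in Csn8AKO (log2 fold change 1.19, SE 0.17, adjusted p = 0.00594), a stable call. Among the other called members were the proteases Lgmn (1.15), Ctsh (0.77, up to 0.111 without Ctrl 2) and Ctsc (0.65, up to 0.146 without Ctrl 4) and the glycosidases Gla (1.06, up to 0.0629 without Ctrl 2) and Gusb (0.53, up to 0.129 without Ctrl 3). Macrophages express many of these genes at a high level, and macrophage markers were higher in the same mice, as given below. Their part in the lysosomal values was not tested. Called lysosomal genes numbered 6 (without any 1 of Csn8AKO 3, Ctrl 2, Ctrl 3 and Ctrl 4) to 22 (without Csn8AKO 2), 5 without the muscle pair, 17 without the lymph node pair and 3 with library size alone.

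Targets of p53 and genes of cell death were higher in a few members. Of 44 p53 targets 5 rose and 0 fell (median 0.42). Cdkn1a, the cell cycle inhibitor p21, was at 8.57, 11.3, 12.3 and 14.7 CPM in Ctrl and 35.5, 53.9, 68.1 and 67.1 CPM in Csn8AKO with a stable call (log2 fold change 2.26, SE 0.24, adjusted p = 0.00151). Its lowest Csn8AKO value was far above its highest Ctrl value. Bax, an executioner of the mitochondrial death pathway, was at 10.0, 9.49, 6.79 and 8.96 CPM in Ctrl and 13.4, 16.1, 14.2 and 14.8 CPM in Csn8AKO (log2 fold change 0.73, SE 0.17, adjusted p = 0.0347, up to 0.101 without Ctrl 4). Mdm2, the p53 ubiquitin ligase, was at 33.3, 33.1, 33.1 and 31.8 CPM in Ctrl and 40.2, 44.0, 37.5 and 44.4 CPM in Csn8AKO and did not pass the test (log2 fold change 0.34, SE 0.11, adjusted p = 0.109). Neither Bax nor Mdm2 had overlapping groups. Ephx1 rose, at 39.9 to 41.9 CPM in Ctrl and 51.9 to 109 CPM in Csn8AKO (log2 fold change 1.04, SE 0.20, adjusted p = 0.0174, up to 0.0672 without Ctrl 3), and Trp53inp1 (0.71, up to 0.124 without Ctrl 2) was also called. The p53 targets called numbered 2 (without any 1 of Csn8AKO 3, Ctrl 2, Ctrl 3 and Ctrl 4) to 8 (without Csn8AKO 2), 2 without the muscle pair, 8 without the lymph node pair and 1 with library size alone. Of 45 genes of the BCL2 family, caspases and death machinery 3 rose and 0 fell, and the count was 0 (without Ctrl 4) to 4 (without Ctrl 1), 1 without the muscle pair, 5 without the lymph node pair and 0 with library size alone. Mcl1, which protects from death, was at 130.2, 136, 134 and 132 CPM in Ctrl and 203, 211, 203 and 209 CPM in Csn8AKO (log2 fold change 0.63, SE 0.11, adjusted p = 0.0138, up to 0.0627 without Ctrl 4), and its Csn8AKO values lay close together. Naip2, a sensor of bacterial proteins with near-identical relatives, rose, at 6.36 to 9.69 CPM in Ctrl and 13.8 to 24.0 CPM in Csn8AKO (log2 fold change 1.12, SE 0.21, adjusted p = 0.0152, up to 0.0518 without Ctrl 4). Among 32 genes of gasdermins, inflammasomes and DNA sensing 4 rose and 1 fell (median 0.61). Nlrc4 (log2 fold change 1.17, SE 0.26, adjusted p = 0.0295, up to 0.0958 without Ctrl 2) and Nlrp1a (log2 fold change 1.37, SE 0.31, adjusted p = 0.0325, up to 0.105 without Ctrl 2) rose. Nlrp3 was at 1.31 to 2.03 CPM in Ctrl and 0.962 to 5.1 CPM in Csn8AKO (adjusted p = 0.442). Gsdmd (0.65, up to 0.143 without Ctrl 3) rose and the adaptor Mavs (-0.61, up to 0.134 without Ctrl 2) fell. Higher genes of this list numbered 1 (without any 1 of Csn8AKO 1, Csn8AKO 3, Ctrl 2 and Ctrl 3) to 4, 0 without the muscle pair, 7 without the lymph node pair and 0 with library size alone.

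Proliferation genes lay above 0 as a group. Of 42 genes 40 lay above 0 (median 0.72), and 15 were higher at an unadjusted p under 0.05. DESeq2 called 10 higher and limma voom 11, but edgeR called only 2. Bub1 was at 0.271, 0.404, 0.354 and 0.104 CPM in Ctrl and 1.39, 1.89, 1.51 and 0.969 CPM in Csn8AKO (log2 fold change 2.33, SE 0.44, adjusted p = 0.0160, up to 0.0576 without Csn8AKO 3). Kif11 was at 2.66, 2.32, 2.24 and 2.12 CPM in Ctrl and 5.77, 4.87, 3.64 and 3.73 CPM in Csn8AKO (log2 fold change 0.95, SE 0.24, adjusted p = 0.0469, up to 0.139 without Ctrl 4). Mki67, which marks dividing cells, was at 20.3, 14.6, 13.6 and 15.0 CPM in Ctrl and 31.6, 46.7, 26.9 and 17.2 CPM in Csn8AKO (adjusted p = 0.0797). Its highest value was in Csn8AKO 2, the library with lymph node signal, and the number called was 0 (without Csn8AKO 3) to 6 (without Csn8AKO 4), 0 without the muscle pair, 4 without the lymph node pair and 1 with library size alone.

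The macrophage core had the largest share of higher genes among the 67 lists. Of 25 core macrophage genes 15 rose and 0 fell, against 2.30% of all genes, and the median log2 fold change was 0.93. Their summed level was 1656, 1167, 1406 and 1478 CPM in Ctrl and 3265, 2897, 3186 and 2374 CPM in Csn8AKO, so that the groups did not overlap. Mpeg1, a pore-forming protein of phagocytes, was at 65.0, 34.7, 47.5 and 33.4 CPM in Ctrl and 161, 176, 192 and 112 CPM in Csn8AKO (log2 fold change 1.83, SE 0.25, adjusted p = 0.00398). Sirpa, an inhibitory receptor that reads the signal CD47, was at 104, 105, 105 and 101.3 CPM in Ctrl and 193, 149.9, 252 and 205 CPM in Csn8AKO (log2 fold change 0.95, SE 0.16, adjusted p = 0.0108). Fcgr2b, an inhibitory receptor for antibodies, was at 44.0, 43.7, 55.7 and 60.2 CPM in Ctrl and 132, 82.1, 93.8 and 79.5 CPM in Csn8AKO (log2 fold change 0.93, SE 0.19, adjusted p = 0.0225, up to 0.0832 without Ctrl 2). None of these 3 genes had overlapping groups. Csf1r, the growth factor receptor of macrophages, was at 204, 228, 247 and 277 CPM in Ctrl and 389, 231, 481 and 357 CPM in Csn8AKO, with overlapping groups (adjusted p = 0.147). Other called members included Lyz2 (1.45), Tyrobp (1.44, up to 0.0515 without Csn8AKO 3) and the myeloid factor Spi1 (1.10, up to 0.0711 without Ctrl 3). Called core genes numbered 8 (without Ctrl 2) to 16 (without Csn8AKO 2), 7 without the muscle pair, 19 without the lymph node pair and 5 with library size alone. All 21 genes of resident macrophages lay above 0 (median 0.66), but only Mrc1, the mannose receptor, was called. It was at 179, 212, 255 and 267 CPM in Ctrl and 515, 309, 464 and 346 CPM in Csn8AKO (log2 fold change 0.84, SE 0.21, adjusted p = 0.0464, up to 0.144 without Csn8AKO 3). Lyve1 (0.194) and Cd163 (0.816) did not pass the test at these adjusted p values, and in Csn8AKO 2 Cd163 was at 109 CPM, below all Ctrl mice.

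The lipid-associated macrophage program had 11 of 31 genes higher and 0 lower (median 0.59). Trem2, a lipid receptor that this program depends on, was at 2.17, 5.1, 5.55 and 4.4 CPM in Ctrl and 27.5, 19.9, 43.9 and 15.2 CPM in Csn8AKO (log2 fold change 2.63, SE 0.39, adjusted p = 0.00700). Gpnmb, a glycoprotein of lysosomes, was at 18.2, 37.7, 33.1 and 40.9 CPM in Ctrl and 113, 136, 138 and 87.5 CPM in Csn8AKO (log2 fold change 1.87, SE 0.25, adjusted p = 0.00418). Nceh1, which hydrolyses cholesteryl esters, was at 8.12, 6.11, 8.62 and 8.75 CPM in Ctrl and 29.2, 26.5, 41.9 and 20.1 CPM in Csn8AKO (log2 fold change 1.89, SE 0.23, adjusted p = 0.00276). Itgax, the integrin CD11c, was at 10.1, 5.76, 6.2 and 4.97 CPM in Ctrl and 19.0, 33.5, 20.6 and 16.1 CPM in Csn8AKO (log2 fold change 1.72, SE 0.29, adjusted p = 0.00930). These 4 calls were stable, and no Csn8AKO value of these genes fell within the Ctrl range. Mmp12, a macrophage elastase, was at 0.361, 9.75, 7.09 and 3.31 CPM in Ctrl and 110.4, 72.8, 75.3 and 46.4 CPM in Csn8AKO (log2 fold change 3.90, SE 0.82, adjusted p = 0.0427, up to 0.135 without Ctrl 4). The Ctrl mice spread over a wide range on the log scale. Spp1, which encodes osteopontin, was at 0.0902, 0.202, 0.591 and 0.104 CPM in Ctrl and 1.57, 1.89, 2.2 and 0.597 CPM in Csn8AKO (log2 fold change 2.69, SE 0.62, adjusted p = 0.0350, up to 0.113 without Ctrl 2). The summed level of the list overlapped between the groups, and its largest parts were Lpl, given above, and Fabp4, both of which adipocytes also express. Fabp4 was at 3740 to 5869 CPM in Ctrl and 1944 to 4688 CPM in Csn8AKO (adjusted p = 0.419). The called members numbered 7 (without Csn8AKO 3) to 15 (without Csn8AKO 2), 9 without the muscle pair, 14 without the lymph node pair and 8 with library size alone. Outside the list, Soat1, which makes cholesteryl esters for storage, rose, at 17.8 to 26.2 CPM in Ctrl and 40.0 to 64.2 CPM in Csn8AKO with a stable call (log2 fold change 1.31, SE 0.18, adjusted p = 0.00398). The sterol synthesis enzyme Fdft1, which shares exon positions with Ctsb on the other strand, fell. It was at 42.7 to 59.9 CPM in Ctrl and 12.6 to 19.9 CPM in Csn8AKO, also with a stable call (log2 fold change -1.63, SE 0.18, adjusted p = 0.00194). They were the only called genes among 32 of cholesterol synthesis and uptake (median 0.01).

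Some genes of phagocyte function rose as well. Of 11 tested NADPH oxidase genes 4 rose and 0 fell (median 0.87). Cybb, the catalytic subunit, was at 33.6, 32.2, 31.7 and 28.8 CPM in Ctrl and 78.4, 56.7, 78.2 and 49.1 CPM in Csn8AKO (log2 fold change 1.06, SE 0.17, adjusted p = 0.00789), a stable call. Its partner Cyba was at 48.0, 32.6, 32.3 and 36.7 CPM in Ctrl and 83.8, 78.6, 94.0 and 53.6 CPM in Csn8AKO (log2 fold change 1.05, SE 0.20, adjusted p = 0.0153, up to 0.0611 without Ctrl 3). Of 28 genes of Toll-like receptors and adaptors 4 rose and 0 fell (median 0.41). Tlr13, a sensor of bacterial ribosomal RNA, was at 3.52, 3.03, 4.37 and 3.52 CPM in Ctrl and 13.1, 17.9, 15.2 and 6.41 CPM in Csn8AKO (log2 fold change 1.87, SE 0.30, adjusted p = 0.00803). Ly86 was at 8.68 to 12.4 CPM in Ctrl and 16.5 to 27.7 CPM in Csn8AKO (log2 fold change 1.18, SE 0.19, adjusted p = 0.00867), and both calls were stable. Tlr2 rose as well (log2 fold change 1.03, SE 0.18, adjusted p = 0.0138, up to 0.0543 without Csn8AKO 3). Of 38 phagocytic and efferocytosis receptors 8 rose and 0 fell (median 0.74). Besides Trem2 and the Fc receptors these included the nucleotide receptor P2ry6 (0.84, up to 0.130 without Csn8AKO 3) and the bridging protein Pros1 (0.78, up to 0.151 without Ctrl 2). Of 32 complement genes 10 rose and 1 fell, the latter being Cfd (median 0.83). C5ar2, a receptor for C5a, was at 3.11, 3.48, 3.48 and 3.57 CPM in Ctrl and 7.02, 8.35, 8.87 and 10.2 CPM in Csn8AKO (log2 fold change 1.33, SE 0.19, adjusted p = 0.00532), a stable call. C1qb was called (log2 fold change 0.98, SE 0.23, adjusted p = 0.0370, up to 0.125 without Csn8AKO 3), but C1qa (adjusted p = 0.100) and C1qc (adjusted p = 0.0563), its partners in the same complex, were not. Higher complement genes numbered 6 (without any 1 of Csn8AKO 1, Csn8AKO 3, Ctrl 2 and Ctrl 3) to 17 (without Csn8AKO 2), 5 without the muscle pair, 16 without the lymph node pair and 2 with library size alone. Higher phagocytic receptors numbered 2 (without any 1 of Csn8AKO 3, Ctrl 2 and Ctrl 3) to 10 (without Csn8AKO 2), 1 without the muscle pair, 14 without the lymph node pair and 1 with library size alone. The NADPH oxidase genes called numbered 2 (without Ctrl 3) to 5 (without Csn8AKO 2), 3 without the muscle pair, 4 without the lymph node pair and 0 with library size alone. The count for Toll-like receptors and adaptors was 2 (without any 1 of Csn8AKO 3, Ctrl 2 and Ctrl 3) to 6 (without any 1 of Csn8AKO 2 and Ctrl 1), 3 without the muscle pair, 8 without the lymph node pair and 1 with library size alone.

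Chemokines and cytokines changed in both directions. Of 41 chemokines and receptors 6 rose and 2 fell (median 0.57). Ccl8, which attracts monocytes, was at 11.2, 8.53, 14.9 and 16.5 CPM in Ctrl and 78.9, 24.0, 47.2 and 45.3 CPM in Csn8AKO (log2 fold change 1.93, SE 0.35, adjusted p = 0.0174, up to 0.0563 without Ctrl 2). Ccl9 was at 35.7 to 69.4 CPM in Ctrl and 103 to 214 CPM in Csn8AKO, with a stable call (log2 fold change 1.601, SE 0.25, adjusted p = 0.00815). Ccl2, the best known monocyte chemokine, was at 6.36, 5.71, 4.49 and 6.42 CPM in Ctrl and 7.34, 17.4, 5.84 and 3.36 CPM in Csn8AKO, and its highest value was in Csn8AKO 2 (adjusted p = 0.524). Tnf was at 2.75, 0.959, 0.472 and 0.621 CPM in Ctrl and 1.15, 6.09, 1.1 and 1.19 CPM in Csn8AKO (adjusted p = 0.515), again with Csn8AKO 2 at the top. The ligands of CXCR3, all known as interferon-induced, diverged. Cxcl9 was at 12.3, 12.1, 16.9 and 12.2 CPM in Ctrl and 29.9, 18.5, 53.2 and 35.0 CPM in Csn8AKO (log2 fold change 1.35, SE 0.28, adjusted p = 0.0274, up to 0.0961 without Ctrl 2). Cxcl10 fell, at 13.0 to 20.1 CPM in Ctrl and 3.79 to 6.05 CPM in Csn8AKO with a stable call (log2 fold change -1.58, SE 0.21, adjusted p = 0.00398). Cxcl11 (-1.66, up to 0.0634 without Csn8AKO 3) fell as well. Higher chemokine genes numbered 1 (without any 1 of Csn8AKO 3 and Ctrl 2) to 8 (without Csn8AKO 2), 3 without the muscle pair, 8 without the lymph node pair and 2 with library size alone. Of 53 interferon-stimulated genes 2 were higher and 2 lower (median 0.07). Among them Ifi27l2a was at 450.2, 479, 597 and 727 CPM in Ctrl and 243, 84.2, 201 and 119 CPM in Csn8AKO with a stable call (log2 fold change -1.798, SE 0.33, adjusted p = 0.0145). Isg15 was at 3.43 to 5.01 CPM in Ctrl and 2.31 to 7.22 CPM in Csn8AKO (adjusted p = 0.893). The higher interferon-stimulated genes numbered 0 (without any 1 of Csn8AKO 1, Csn8AKO 3, Ctrl 2, Ctrl 3 and Ctrl 4) to 3 (without Csn8AKO 2), 0 without the muscle pair, 5 without the lymph node pair and 0 with library size alone. Il33, an alarmin of stromal cells, was at 11.2, 5.25, 8.03 and 6.99 CPM in Ctrl and 25.5, 28.6, 28.3 and 12.8 CPM in Csn8AKO (log2 fold change 1.597, SE 0.30, adjusted p = 0.0160, up to 0.0606 without Ctrl 4). Tnfrsf21 rose, at 15.4 to 19.5 CPM in Ctrl and 28.3 to 35.8 CPM in Csn8AKO with a stable call (log2 fold change 0.90, SE 0.14, adjusted p = 0.00717). Tnfrsf11a, the receptor RANK, was at 7.46 to 15.2 CPM in Ctrl and 17.5 to 25 CPM in Csn8AKO (log2 fold change 1.00, SE 0.23, adjusted p = 0.0364, up to 0.120 without Csn8AKO 3).

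Other leukocytes had fewer genes called by edgeR than the macrophage core. All 15 tested genes of mast cells and eosinophils lay above 0, and their median of 1.16 was above that of the macrophage core, but edgeR called only Ear2. It was at 5.91, 6.67, 6.26 and 9.06 CPM in Ctrl and 31.4, 14.3, 23.7 and 13.6 CPM in Csn8AKO (log2 fold change 1.57, SE 0.28, adjusted p = 0.0140, up to 0.0560 without Ctrl 3). The mast cell protease Mcpt4 was at 12.0, 14.1, 13.0 and 20.0 CPM in Ctrl and 64.0, 17.6, 51.1 and 23.9 CPM in Csn8AKO (adjusted p = 0.0845). The mast cell protease Cpa3 was at 5.73, 7.27, 6.02 and 11.6 CPM in Ctrl and 43.6, 10.2, 22.8 and 12.5 CPM in Csn8AKO (adjusted p = 0.0981). The groups overlapped for both, with Csn8AKO 1 and Csn8AKO 3 at the top. Of the 15 genes 9 were higher at an unadjusted p under 0.05, and DESeq2 called 8 and limma voom 4 higher. The count by edgeR was 0 to 4, 1 without the muscle pair, 4 without the lymph node pair and 1 with library size alone. Of 30 genes of monocytes, dendritic cells and MHC class II 3 rose and 0 fell (median 0.69). Among them Chil3 was at 0.0591 to 0.271 CPM in Ctrl and 0.739 to 2.03 CPM in Csn8AKO (log2 fold change 2.90, SE 0.52, adjusted p = 0.0139, up to 0.0542 without Ctrl 2). Called genes of this list numbered 2 (without Ctrl 2) to 8 (without Ctrl 1), 2 without the muscle pair, 13 without the lymph node pair and 3 with library size alone. Cd74 was at 814, 568, 590.5 and 584 CPM in Ctrl and 957, 1215, 882 and 898 CPM in Csn8AKO, where the highest Ctrl value was that of Ctrl 1 (adjusted p = 0.0992). Of 9 tested neutrophil genes Csf3r rose (log2 fold change 1.18, SE 0.23, adjusted p = 0.0198, up to 0.0588 without Ctrl 4). Prtn3 fell, at 10.0 to 17.2 CPM in Ctrl and 2.31 to 5.22 CPM in Csn8AKO with a stable call (log2 fold change -1.93, SE 0.31, adjusted p = 0.00865). In this list 7 of the 9 genes lay above 0 (median 0.747), and DESeq2 called 4 higher and 1 lower. The neutrophil marker S100a8 was at 1.94 CPM or less in every library, and Ly6g had 0 reads in all 8. S100a9 had 86 reads in Csn8AKO 2, 23 in Ctrl 1 and 14 or fewer in the other libraries. Cxcr2 had 131 reads in Csn8AKO 2, 18 in Ctrl 1 and 5 or fewer in the others. Csn8AKO 2 and Ctrl 1 are the libraries with lymph node signal. The lists of T and natural killer cells (32 tested, median 0.31) and of B cells (23 tested, median 1.21) had 0 genes called by edgeR, with 0 and 1 at an unadjusted p under 0.05, and both DESeq2 and limma voom called 0 and 1. Without the lymph node pair 1 gene of each list was called higher. The summed B cell level was 902, 340.5, 299 and 324 CPM in Ctrl and 446, 1938, 439 and 473 CPM in Csn8AKO. All 23 B cell genes lay above 0, and apart from Ctrl 1 and Csn8AKO 2 the sums, which include Ighm, did not overlap between the groups. The B cell markers did overlap in these other libraries. Cd79a was at 0.707, 1.36 and 2.43 CPM in Ctrl and 3.00, 0.962 and 0.895 CPM in Csn8AKO. Ms4a1 was at 0, 0.354 and 0.932 CPM in Ctrl and 1.75, 0.275 and 0.447 CPM in Csn8AKO. Cd3e was at 31.5, 0.858, 0.709 and 2.17 CPM in Ctrl and 4.76, 46.2, 0.962 and 1.34 CPM in Csn8AKO, and outside Ctrl 1 and Csn8AKO 2 no library passed 4.76 CPM. The heavy chain gene Ighm was at 178, 122, 61.4 and 70.5 CPM in Ctrl and 188, 374, 173 and 228 CPM in Csn8AKO (adjusted p = 0.116).

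**Figure D4:**
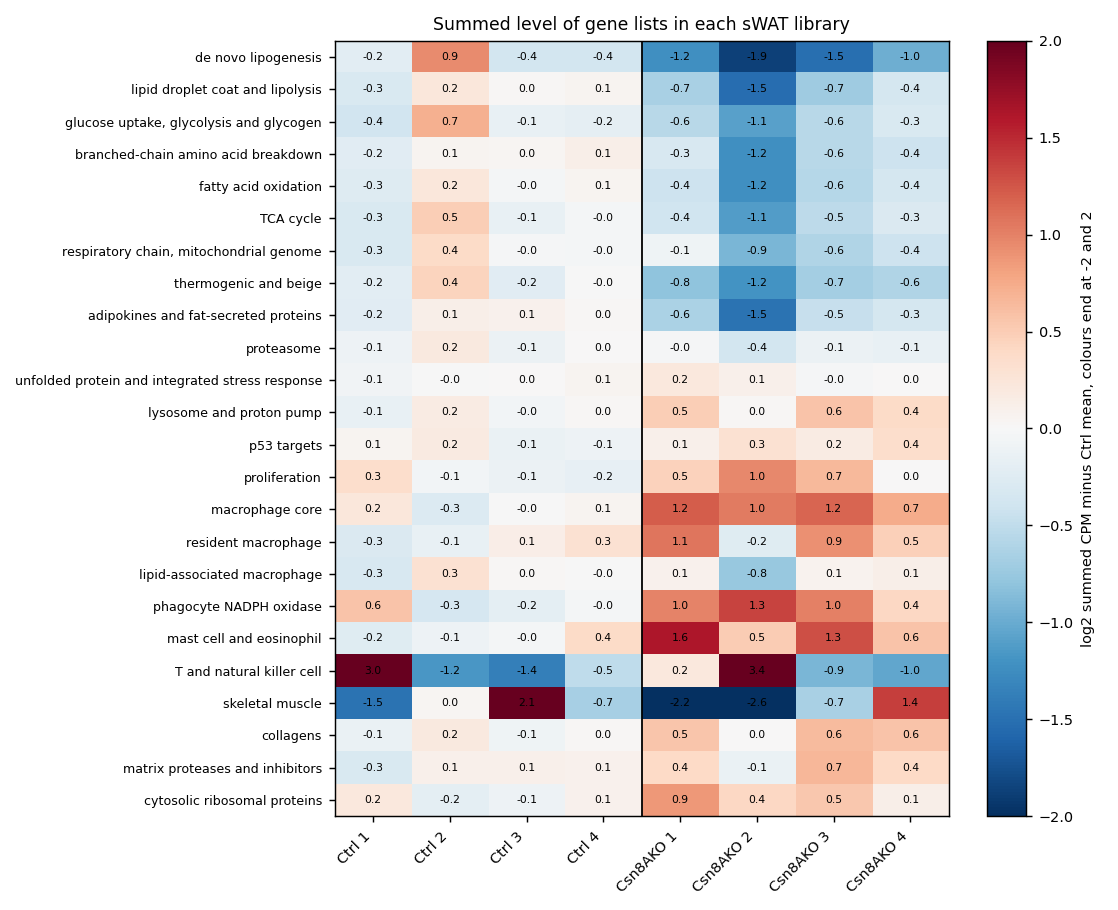
Log2 of the summed CPM of 24 gene lists in each of the 8 sWAT libraries, minus the mean of the 4 Ctrl libraries, with each value printed in its cell. Csn8AKO 2 has the lowest lipid droplet, oxidation and adipokine levels, and the T cell and muscle levels of 1 library in each group stand above the others.

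Several matrix genes were higher, but the main fibrillar collagens did not pass the test. Of 34 collagen genes 4 rose and 0 fell (median 0.44). Col1a1, the main fibrillar collagen, was at 2513, 3056, 2822 and 2762 CPM in Ctrl and 3316, 2858, 4976 and 4245 CPM in Csn8AKO, and its groups overlapped (adjusted p = 0.311), as did those of Col1a2 (0.352) and Col3a1 (0.293). Col12a1, which decorates collagen fibrils, was at 18.5, 24.99, 27.9 and 27.8 CPM in Ctrl and 61.3, 68.0, 66.1 and 51.8 CPM in Csn8AKO (log2 fold change 1.32, SE 0.16, adjusted p = 0.00269), a stable call. Col16a1 (0.80 ± 0.16 SE, up to 0.0848 without Ctrl 3) and Col18a1 (0.67 ± 0.16 SE, up to 0.148 without Ctrl 3) rose, as did Col6a5 (1.84, up to 0.122 without Ctrl 4). Of 42 basement membrane and matrix glycoprotein genes 6 rose and 0 fell (median 0.45). Postn, a matrix protein of remodelling tissue, was at 120.1, 140.5, 157 and 179.6 CPM in Ctrl and 622, 396, 351 and 297 CPM in Csn8AKO (log2 fold change 1.48, SE 0.24, adjusted p = 0.00867), with a stable call. The lowest Csn8AKO value of Postn and of Vcan was that of Csn8AKO 4. Vcan was at 40.1, 47.5, 61.3 and 56.2 CPM in Ctrl and 137, 138, 108 and 64.8 CPM in Csn8AKO (log2 fold change 1.12, SE 0.24, adjusted p = 0.0270, up to 0.0897 without Ctrl 2). Emilin1 was at 16.6 to 19.9 CPM in Ctrl and 26.0 to 44.2 CPM in Csn8AKO (log2 fold change 0.90, SE 0.18, adjusted p = 0.0200, up to 0.0734 without Ctrl 4). Of 43 matrix proteases and inhibitors 5 rose and 0 fell (median 0.45). Adam12, a metalloprotease of mesenchymal cells, was at 45.3, 47.0, 43.9 and 52.2 CPM in Ctrl and 122, 98.1, 96.5 and 122 CPM in Csn8AKO (log2 fold change 1.22, SE 0.13, adjusted p = 0.00180). Adam8, of myeloid cells, was at 11.7, 9.95, 10.8 and 11.0 CPM in Ctrl and 32.7, 66.6, 67.7 and 28.2 CPM in Csn8AKO (log2 fold change 2.17, SE 0.29, adjusted p = 0.00452), and both calls were stable. Plaur, the urokinase receptor, rose, at 4.24 to 4.92 CPM in Ctrl and 6.79 to 17.9 CPM in Csn8AKO (log2 fold change 1.45, SE 0.29, adjusted p = 0.0218, up to 0.0764 without Ctrl 2). Timp1 was at 0.236 to 1.31 CPM in Ctrl and 1.57 to 6.68 CPM in Csn8AKO (log2 fold change 2.22, SE 0.55, adjusted p = 0.0462, up to 0.133 without Ctrl 4). Called collagens numbered 1 (without any 1 of Csn8AKO 1, Csn8AKO 3, Ctrl 3 and Ctrl 4) to 8 (without Csn8AKO 2), 1 without the muscle pair, 7 without the lymph node pair and 2 with library size alone. Called matrix glycoproteins numbered 1 (without any 1 of Csn8AKO 3, Ctrl 2 and Ctrl 4) to 12 (without Csn8AKO 2), 3 without the muscle pair, 10 without the lymph node pair and 2 with library size alone. The proteases and inhibitors called numbered 2 (without any 1 of Csn8AKO 3, Ctrl 2, Ctrl 3 and Ctrl 4) to 13 (without Csn8AKO 2), 3 without the muscle pair, 14 without the lymph node pair and 1 with library size alone.

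In TGF-beta, BMP and activin signaling edgeR called 2 of 45 genes lower, Inhbb and Ltbp2, and 0 higher, beside 3.01% lower over all genes. The list as a whole was not lower, as 26 genes lay above and 19 below 0 (median 0.13). At an unadjusted p under 0.05, 10 were higher and 4 lower. DESeq2 called 4 higher and 2 lower, and limma voom 5 higher and 2 lower. Ltbp2, a protein of microfibrils, was at 93.0, 93.7, 133 and 146 CPM in Ctrl and 27.5, 61.9, 42.0 and 64.4 CPM in Csn8AKO (log2 fold change -1.25, SE 0.27, adjusted p = 0.0322, up to 0.104 without Csn8AKO 3). Stromal progenitors and vessels changed in few genes. Of 28 genes of adipose progenitors and fibroblasts 2 rose and 0 fell (median 0.60), namely Il33 and Mgp. Mgp, an inhibitor of calcification, was at 7.3 to 11.3 CPM in Ctrl and 12.8 to 19.6 CPM in Csn8AKO (log2 fold change 0.90, SE 0.21, adjusted p = 0.0346, up to 0.112 without Csn8AKO 3). Pdgfra was at 170.1, 144, 189 and 204 CPM in Ctrl and 334, 199, 303 and 194 CPM in Csn8AKO (adjusted p = 0.178). Dpp4, a marker of early progenitors, was at 61.7, 45.6, 62.1 and 63.2 CPM in Ctrl and 176, 60.8, 158 and 87.3 CPM in Csn8AKO (adjusted p = 0.0907), and the groups overlapped for both. Called progenitor and fibroblast genes numbered 0 (without any 1 of Csn8AKO 1, Csn8AKO 3, Ctrl 3 and Ctrl 4) to 11 (without Csn8AKO 2), 1 without the muscle pair, 11 without the lymph node pair and 0 with library size alone. The endothelial marker Pecam1 was at 94.6 to 124 CPM in Ctrl and 75.5 to 185 CPM in Csn8AKO (adjusted p = 0.828) and Cdh5 at 133 to 167 CPM in Ctrl and 80.9 to 152 CPM in Csn8AKO (adjusted p = 0.311). Apart from Vegfa and Vegfb only Ackr1, a chemokine-binding receptor of venules, was called among 36 endothelial and angiogenic genes (log2 fold change 0.88, SE 0.20, adjusted p = 0.0346, up to 0.110 without Ctrl 4). Of 16 genes of mural cells and smooth muscle 2 fell and 0 rose (median 0.01), both of pericytes. Rgs5 was at 156, 148, 139 and 165 CPM in Ctrl and 78.8, 76.6, 67.1 and 95.7 CPM in Csn8AKO (log2 fold change -0.93, SE 0.14, adjusted p = 0.00638), a stable call. Cspg4, the proteoglycan NG2, was at 175, 313, 176 and 219.9 CPM in Ctrl and 73.7, 56.2, 75.6 and 121 CPM in Csn8AKO (log2 fold change -1.44, SE 0.27, adjusted p = 0.0155, up to 0.0657 without Csn8AKO 3). The smooth muscle gene Myh11 was at 36.4 to 72.5 CPM in Ctrl and 37.3 to 66.0 CPM in Csn8AKO (adjusted p = 0.954). Of 14 Schwann cell and nerve genes 13 lay above 0 and only S100b was called.

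The acute phase and lipocalin list held the largest rise of all listed genes. Of 31 tested genes 5 rose and 1 fell, the latter being Steap4. Lcn2, which binds bacterial iron carriers, was at 1.67, 0.707, 0.591 and 0.414 CPM in Ctrl and 301, 318, 568 and 722 CPM in Csn8AKO (log2 fold change 9.10, SE 0.55, adjusted p = 1.38e-04). Saa3 was at 0.587, 0.707, 1.3 and 0.414 CPM in Ctrl and 17.8, 7.31, 16.7 and 12.8 CPM in Csn8AKO (log2 fold change 4.19, SE 0.41, adjusted p = 9.78e-04). These rises were not shared by all genes of the list, as Hp, which encodes haptoglobin, was at 887, 1189, 1298 and 1579 CPM in Ctrl and 2011, 1762, 1661 and 2856 CPM in Csn8AKO (adjusted p = 0.129). Serpina3n was at 234, 381, 217 and 192 CPM in Ctrl and 333, 239.7, 157 and 319.8 CPM in Csn8AKO (adjusted p = 0.960). The major urinary protein gene Mup10 rose as well, at 0.541, 0.858, 1.83 and 1.09 CPM in Ctrl and 31.5, 8.26, 19.9 and 10.1 CPM in Csn8AKO (log2 fold change 4.03, SE 0.53, adjusted p = 0.00532). Mup22 was at 0.541, 0.858, 1.83 and 1.19 CPM in Ctrl and 31.9, 8.53, 21.9 and 10.2 CPM in Csn8AKO (log2 fold change 4.05, SE 0.54, adjusted p = 0.00532). Their values were nearly the same in each mouse, and as the Mup genes are near-identical copies, the reads cannot be assigned to single genes with certainty. Whether the same reads were counted for both was not tested, so that these calls cannot be taken as separate rises. The promoters of Lcn2 and Saa3 are shown as those of the largest stable rises outside the Mup family in this list. Matches to the C/EBP letters TTGCNNAA, read on both strands, are in capitals in the 250 bases before the RefSeq start on GRCm38.p6, at chr2:32387740-32387989 for Lcn2 and chr7:46715677-46715926 for Saa3, both on the minus strand.
Lcn2: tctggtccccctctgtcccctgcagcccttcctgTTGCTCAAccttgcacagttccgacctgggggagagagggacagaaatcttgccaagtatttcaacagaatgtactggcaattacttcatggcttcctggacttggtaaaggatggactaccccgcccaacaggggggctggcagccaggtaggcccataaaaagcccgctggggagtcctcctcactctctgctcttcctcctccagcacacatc
Saa3: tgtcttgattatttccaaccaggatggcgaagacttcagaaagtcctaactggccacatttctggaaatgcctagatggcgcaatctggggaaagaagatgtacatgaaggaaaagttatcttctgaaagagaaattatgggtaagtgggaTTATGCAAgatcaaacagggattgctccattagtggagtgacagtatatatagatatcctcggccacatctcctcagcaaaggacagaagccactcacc
Each window held 1 match, which begins 216 bases before the start in Lcn2 and 99 bases before it in Saa3. These letters were present in 9.56% of all 32851 windows, in 12.5% of those of genes called higher and in 8.46% of those of genes called lower.

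Genes next to Adipoq on chromosome 16 were examined because Cre is driven from the adiponectin promoter. Of 12 tested genes 2 rose and 0 fell. Masp1, a protease of the complement lectin pathway (ENSMUSG00000022887, chromosome 16, 23449417 to 23520815), was at 0.812, 1.97, 1.3 and 1.45 CPM in Ctrl and 8.31, 6.23, 13.1 and 11.5 CPM in Csn8AKO (log2 fold change 2.82, SE 0.33, adjusted p = 0.00255), a stable call. Eif4a2 (ENSMUSG00000022884, chromosome 16, 23107444 to 23114136) was at 165, 142, 173 and 187 CPM in Ctrl and 329, 255, 238 and 226 CPM in Csn8AKO (log2 fold change 0.65, SE 0.16, adjusted p = 0.0473, up to 0.148 without Ctrl 2). A part of the transgene in these values was not tested.

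Large rises outside all lists included that of the ubiquitin ligase Rnf128, at 0.135, 0.202, 1.3 and 0.414 CPM in Ctrl and 6.00, 4.33, 3.02 and 4.55 CPM in Csn8AKO (log2 fold change 3.16, SE 0.60, adjusted p = 0.0174, up to 0.0688 without Ctrl 4). The glutamate receptor Grid1 was at 0.316, 1.21, 0.295 and 0.259 CPM in Ctrl and 5.36, 1.67, 5.16 and 13.4 CPM in Csn8AKO (log2 fold change 3.59, SE 0.73, adjusted p = 0.0267, up to 0.0882 without Ctrl 3). The C-type lectin Clec4d of myeloid cells was at 0.451, 0.202, 0.413 and 0.621 CPM in Ctrl and 4.76, 5.68, 3.44 and 1.19 CPM in Csn8AKO (log2 fold change 3.15, SE 0.51, adjusted p = 0.00865). Acoxl was at 0.226, 0.505, 0.472 and 0.311 CPM in Ctrl and 4.29, 2.48, 3.09 and 5.59 CPM in Csn8AKO (log2 fold change 3.34, SE 0.39, adjusted p = 0.00242). The heparan sulfate proteoglycan Sdc1 was at 9.7, 13.3, 9.86 and 11.5 CPM in Ctrl and 35.8, 37.1, 42.6 and 34.2 CPM in Csn8AKO (log2 fold change 1.75, SE 0.15, adjusted p = 5.30e-04). The adhesion molecule Chl1 was at 3.88, 3.23, 3.07 and 3.31 CPM in Ctrl and 12.0, 14.8, 11.7 and 13.2 CPM in Csn8AKO (log2 fold change 1.93, SE 0.17, adjusted p = 7.44e-04). Other rises with little spread were those of the sugar phosphate transporter Slc37a2 (log2 fold change 1.71, SE 0.19, adjusted p = 0.00180) and the inhibitory receptor Lilr4b (log2 fold change 1.84, SE 0.17, adjusted p = 7.88e-04). Calls of Clec4d, Acoxl, Sdc1, Chl1, Slc37a2 and Lilr4b were stable. Among 12 genes of the EGF family and its receptors 2 fell and 0 rose, Nrg4 and Lrig1, which restrains EGF receptors (log2 fold change -0.82, SE 0.16, adjusted p = 0.0179, up to 0.0725 without Csn8AKO 3).

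**Figure D5:**
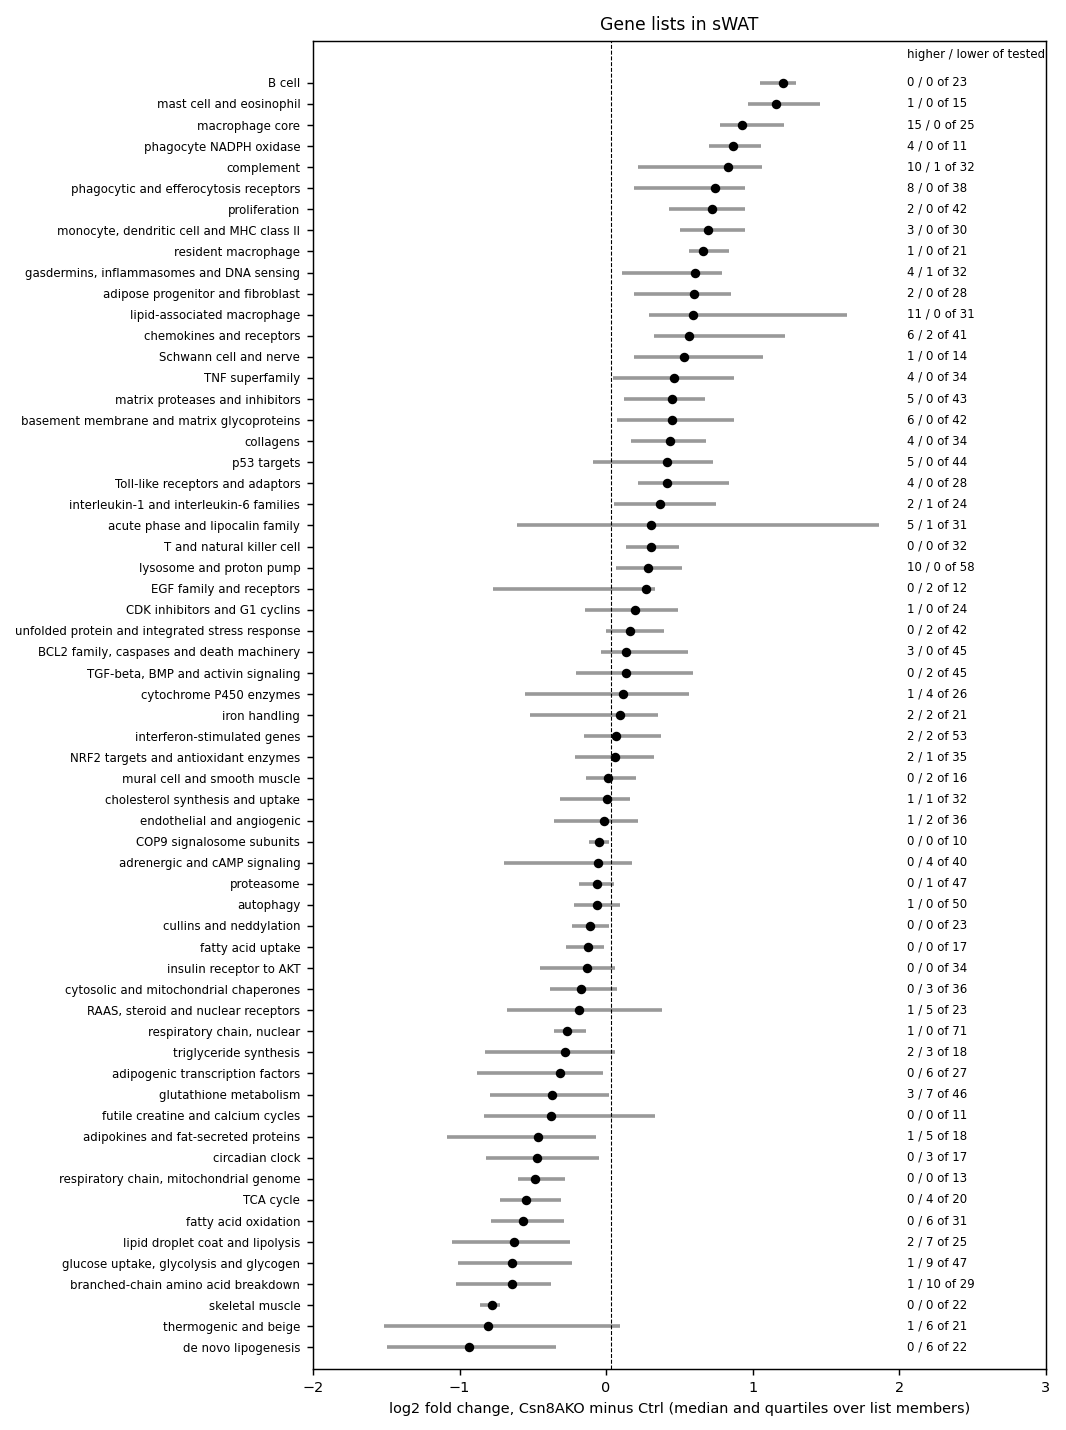
Median (point) and quartiles (bar) of the log2 fold change (Csn8AKO minus Ctrl) over the tested members of each gene list with at least 10 tested genes, without the Adipoq neighbours and the ribosomal proteins, with the number called higher and lower at the right and the median of all genes, 0.03, as a dashed line. Lipogenesis, thermogenic, amino acid, glucose and oxidation lists lie to the left and macrophage, mast cell and complement lists to the right. The B cell list at the top and the skeletal muscle list near the bottom have 0 genes called.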

How the data were processed

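RNA from sWAT of 4 Ctrl and 4 Csn8AKO mice was measured in 1 library per mouse, and the 10 brown fat libraries of the series were not used here. The authors deposited whole counts of reads per gene for each library, not normalized, made with STAR 2.7.9a per the submitters' processing notes and with featureCounts per the study's methods, on GRCm38. By the study's methods, reads that aligned to several places or fitted several genes were left out of these counts. Whether this held for near-identical copies such as Mup10 and Mup22, whose values were nearly equal, was not tested. Whether counting used strand is not given in the sources used here, so that reads of genes on opposite strands of 1 place cannot be told apart. Besides Chdh and Fdft1, this limit holds among others for Cxcl10 (with Art3), Cryab (with Hspb2), Lrig1 (with Slc25a26) and Heph (with Hsf3). Genes were tested with edgeR 4.0.16 (R 4.3.3, quasi-likelihood fit with robust dispersion, TMM scaling, two-sided) after the filter filterByExpr (at least 10 reads in enough libraries, at least 15 in all). Adjusted p values were made by the Benjamini-Hochberg method over all 18843 genes tested, and a gene was called at a value under 0.05 with no limit on the fold change. Levels are CPM after TMM, and the SE was taken from the F statistic. The test was checked on simulated data.

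Gene lists were described by the number of called members and their median. The libraries, lists and genes were chosen with earlier results of these data known. Named genes were fixed by rule: the defining members of each list, its 3 called members of smallest adjusted p, the 15 called genes of largest change in each direction with non-overlapping groups and a mean log2 CPM of 1 or more, the 10 of smallest adjusted p in each direction, and, where wanted, the member of smallest p where a list had 0 calls. Clone, predicted and Riken names, immunoglobulin segments and ribosomal RNA were left out. A few other genes chosen in this way are not reported here.

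Alternatives were other scalings (library size, RLE factors) and filters, DESeq2 1.42.0, limma 3.58.1 voom, rRNA share or marker levels as covariates, a block by replicate number and leaving out each library. Leaving out both libraries with lymph node or muscle signal was added after seeing the data. No 2 libraries agreed within sampling noise. Coordinates are those of the files on GRCm38, and promoter sequences are from RefSeq on GRCm38.p6.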

Additional observations from a re-analysis of the deposited data

Results flagged for a closer look

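For each named gene and each summed level of a list, the highest and lowest of the 4 libraries of a group were compared with the other 3 by the gap to the nearest of them relative to the whole range of the group. Of 608 groups examined 61 passed the 95% critical value of the Dixon test, where about 1 in 20 groups would pass by chance. The values were CPM, and those that passed belonged to Csn8AKO 2 with 17, to Ctrl 1 and Ctrl 2 with 16 each and to the other libraries with 5 or fewer each.

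Csn8AKO 2, the library with the most lymph node signal, stood above the other Csn8AKO libraries in Cd3d (22.2 CPM, others 0.412 to 2.82), Cd3e (46.2 CPM, others 0.962 to 4.76), Cd79a (96.8 CPM, others 0.895 to 3), Csf3r (13.3 CPM, others 8.8 to 8.94), Ms4a1 (48.4 CPM, others 0.275 to 1.75), Tnf (6.09 CPM, others 1.1 to 1.19), the summed level of B cells (1940 CPM, others 439 to 473), the summed level of T and natural killer cells (1140 CPM, others 53.2 to 126) and the summed level of lymph node stroma (456 CPM, others 48.1 to 79). It stood below them in Sdha (180 CPM, others 256 to 268), Tef (86.5 CPM, others 158 to 173), the summed level of NRF2 targets and antioxidant enzymes (2520 CPM, others 3770 to 3900), the summed level of autophagy (2290 CPM, others 2840 to 2880), the summed level of collagens (19800 CPM, others 28700 to 30300), the summed level of cytochrome P450 enzymes (608 CPM, others 910 to 935), the summed level of glutathione metabolism (1810 CPM, others 3230 to 3400) and the summed level of lipid-associated macrophages (10800 CPM, others 19100 to 19700). Ctrl 1 held the lymphocyte signal of its group and stood above the other Ctrl libraries in Cd3d (16.2 CPM, others 0.177 to 0.621), Cd3e (31.5 CPM, others 0.709 to 2.17), Cd74 (814 CPM, others 568 to 590), Cd79a (34.9 CPM, others 0.707 to 2.43), H2-Ab1 (349 CPM, others 214 to 227), Ms4a1 (19.5 CPM, others 0 to 0.932), the summed level of B cells (902 CPM, others 299 to 340), the summed level of T and natural killer cells (896 CPM, others 42.1 to 76.7), the summed level of lymph node stroma (248 CPM, others 27.3 to 57.4) and the summed level of monocytes, dendritic cells and MHC class II (2400 CPM, others 1620 to 1740). The same library lay below the others in Lrig1 (69 CPM, others 86.4 to 89.3), Nqo1 (2.53 CPM, others 4.31 to 4.61), Slc25a20 (32 CPM, others 44.8 to 45.1), the summed level of cullins and neddylation (866 CPM, others 983 to 1000), the summed level of matrix proteases and inhibitors (2450 CPM, others 3210 to 3250) and the summed level of phagocytic and efferocytosis receptors (6540 CPM, others 8160 to 8310).

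Ctrl 2, the library with the highest lipogenic genes, stood above the other Ctrl libraries in Aacs (443 CPM, others 321 to 338), Acly (2340 CPM, others 346 to 400), Cryab (89.7 CPM, others 44.7 to 50.6), Cxcl10 (20.1 CPM, others 13 to 13.9), Dgat2 (2110 CPM, others 1010 to 1140), Fasn (28700 CPM, others 6510 to 7120), Grid1 (1.21 CPM, others 0.259 to 0.316), Kcnk3 (58.2 CPM, others 35.8 to 37.4), Slc2a4 (258 CPM, others 156 to 172), Slc2a5 (25.8 CPM, others 2.95 to 3.56), Stat5a (104 CPM, others 72.6 to 75.7), Wscd2 (45.1 CPM, others 25.5 to 28.6), the summed level of de novo lipogenesis (86600 CPM, others 34800 to 38900) and the summed level of glucose uptake, glycolysis and glycogen (14500 CPM, others 6780 to 8050). Lower than in the others were Dpp4 (45.6 CPM, others 61.7 to 63.2) and Nlrp1a (0.606 CPM, others 0.827 to 0.857). Ctrl 3, the library with the most muscle signal, was above the others in Ackr1 (9.63 CPM, others 5.55 to 6.16), Ckm (258 CPM, others 9.93 to 36.7), Cxcl9 (16.9 CPM, others 12.1 to 12.3), Mup17 (0.532 CPM, others 0) and Myh4 (1460 CPM, others 61.1 to 213). Ctrl 4 was above the others in Agpat4 (12.7 CPM, others 10.7 to 11). It was below them in Mdm2 (31.8 CPM, others 33.1 to 33.3). In Csn8AKO 3 the higher values were those of Agpat4 (34.2 CPM, others 22.4 to 24.4), Hk3 (35.9 CPM, others 23.9 to 25.5), Slc11a1 (72.3 CPM, others 44.6 to 49) and the summed level of interleukin-1 and interleukin-6 families (1700 CPM, others 1520 to 1550). The muscle gene of Csn8AKO 4 was Ckm (138 CPM, others 1.26 to 21.7).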

How the results depend on the processing

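With 4 libraries per group, the number of calls depended on the libraries and the model, while no call shared with an alternative changed its sign. Against 434 higher and 567 lower genes, leaving out 1 library gave 147 to 804 higher and 179 to 673 lower genes. Scaling by library size alone gave 106 and 328, DESeq2 912 and 1034, limma voom 1077 and 1078, and a lymphocyte marker covariate 1071 and 1144. Leaving out both libraries with lymph node signal gave 993 higher and 827 lower genes, and leaving out both with the most muscle signal 154 and 231. The covariates of rRNA share (548 and 832) and muscle level (363 and 414), other filters, RLE factors, protein-coding genes alone and removal of rRNA genes stayed within 1.5 times. Of the 164 called named genes, 99 kept the call under library size alone, 138 with the muscle covariate, 163 with limma voom and 161 with the rRNA covariate, and 59 did so in all alternatives. The reasons for these changes were not tested.

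Replicate numbers are shared by the groups, and the correlations of deviations from the group means for equal numbers were -0.129, -0.387, 0.223 and -0.113. Ctrl 1 was most like Csn8AKO 2 (0.654), the other library with lymph node signal. As tissue other than fat enters these correlations, they cannot show whether the numbers pair the mice. With the replicate number as a block, 134 higher and 165 lower genes were called.

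Genes that did not pass the test changed sign in log2 fold change. With 1 or 2 libraries left out Cd3d ranged from -1.57 to 4.21, Cd3e from -1.87 to 3.41, Cd79a from -2.56 to 4.08, Ms4a1 from -2.58 to 4.88, Ccl2 from -0.052 to 0.81, Pecam1 from -0.20 to 0.28 and Tnf from -0.081 to 1.80, each with its lowest value without Csn8AKO 2. Acta1 ranged from -2.10 to 0.44, Ckm from -3.01 to 0.88 and Myh4 from -2.73 to 0.91, each with its highest value without Ctrl 3, and Hba-a1 from -0.27 without Ctrl 3 and Csn8AKO 4 to 0.43. With the muscle covariate Cd3e was at -1.25, Cd79a at -1.45, Ms4a1 at -1.98 and Ccl2 at -0.072. Among 134 directions of the 67 lists, 58 had 0 calls by edgeR, of which 30 held a gene with an unadjusted p under 0.05, 15 a call by DESeq2 and 18 a call by limma voom.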

Other observations

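The genes of cytosolic ribosomal proteins, which make up the ribosome with ribosomal RNA, chosen by symbol, lay above 0 in 80 of 81 tested members, with a median log2 fold change of 0.49 beside 0.03 over all genes. Their summed level was 13310, 10050, 10640 and 12120 CPM in Ctrl and 20990, 15300, 16570 and 12470 CPM in Csn8AKO, so that the groups overlapped. The groups of single genes were apart for 15 members, all higher, beside 5.78% of all genes tested that were higher without overlap. Rpl37 was the only member called, at 66.9, 62.6, 55.3 and 57.9 CPM in Ctrl and 104.8, 86.1, 105.5 and 70.8 CPM in Csn8AKO (log2 fold change 0.60, SE 0.15, adjusted p = 0.0488 by edgeR), and it was chosen after its values were seen. DESeq2 called 18 members and limma voom 22, and with the ribosomal RNA share as covariate 25 were called. Without Csn8AKO 2 the number was 5, without Csn8AKO 4 it was 6, and without Ctrl 1 and Csn8AKO 2 it was 15. The call of Rpl37 was lost, with 0 members called, without any 1 of Csn8AKO 1, Csn8AKO 3, Ctrl 2, Ctrl 3 and Ctrl 4, with the replicate block, with the muscle covariate, with no filter on low counts and with library size alone. The median of the list lay between 0.36 without Csn8AKO 1 and 0.61 without Ctrl 1 and Csn8AKO 2.

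Among 24 tested CDK inhibitors and G1 cyclins Cdkn1a was called and 0 fell, and cyclin D1, encoded by Ccnd1, was at 25.9, 22.3, 19.1 and 19.1 CPM in Ctrl and 29.7, 35.0, 35.6 and 25.6 CPM in Csn8AKO (adjusted p = 0.0805). Pdpn, a glycoprotein of lymph node stroma that is also found on fibroblasts, was at 11.1, 9.04, 12.9 and 14.4 CPM in Ctrl and 27.5, 23.7, 33.0 and 21.5 CPM in Csn8AKO (log2 fold change 1.15, SE 0.19, adjusted p = 0.00926), a stable call. It was the only called gene of 9 tested in the lymph node stroma list, whose summed level was highest in Ctrl 1 and Csn8AKO 2. The prolactin receptor Prlr was at 6.23, 4.85, 9.8 and 7.87 CPM in Ctrl and 15.8, 10.4, 14.8 and 20.4 CPM in Csn8AKO (log2 fold change 1.09, SE 0.26, adjusted p = 0.0401, up to 0.116 without Ctrl 2), and it was the only called gene among 5 tested genes of mammary-type epithelium, whose keratins Krt8 and Krt18 had 13 reads or fewer in each library. The hemoglobin gene Hbb-bs was at 207, 157, 142 and 186 CPM in Ctrl and 276, 95.2, 235 and 247 CPM in Csn8AKO (adjusted p = 0.624), and 0 of 7 tested erythroid genes were called by edgeR, DESeq2 or limma voom or had an unadjusted p under 0.05.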
